A study of Mus musculus with 8 samples.

Results

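The response of wild-type (WT) mouse distal colon to dextran sulfate sodium (DSS) was read from 4 of the 8 RNA-seq libraries of the series, chosen by their labels alone: 2 from untreated WT mice and 2 from WT mice given DSS. Both WT groups were C57BL/6 mice aged 8 to 10 weeks. DSS was given at 3% for 4 days and was followed by 4 days of plain water, so the tissue was taken after the agent had been withdrawn. Neither group carried the altered locus of the ΔNFκB line, whose 2 untreated and 2 DSS libraries served only to estimate the spread between mice and to test whether the response differed between genotypes. Of 30454 gene symbols with a count, 17522 passed a filter on low counts and were tested. Values are CPM, a gene's counts per 1000000 counts of its library after scaling between libraries, given for replicate 1 and then replicate 2 of each group. Changes are log2 fold changes of DSS over untreated ± SE from edgeR's quasi-likelihood fit, with p adjusted over all genes tested and 0.05 as the threshold.

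DSS is a sulfated polysaccharide that injures the colon epithelium and brings gut bacteria into contact with the mucosa. The colon is normally lined by absorptive colonocytes, which take up salt, water and short-chain fatty acids, and by goblet cells, which secrete the mucus layer. After injury, neutrophils and monocytes enter the tissue under the direction of chemokines, fibroblasts remodel the matrix, and crypt cells re-cover the wound.

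Library totals were 12553588 and 16935961 counts in the untreated mice and 9229861 and 9553678 in the DSS mice. The 2 libraries of a WT group correlated at 0.974 and 0.981 across genes, which are not independent replicates. Epithelial markers were abundant in all 4 libraries: Epcam was at 1162 and 1387 CPM untreated and 715 and 673 CPM after DSS, and Krt8 at 3161 and 3994 and then 2351 and 2064 CPM. Mitochondrially encoded transcripts took 14.96% and 17.6% of counts untreated and 7.27% and 9.66% after DSS, and ribosomal RNA-like transcripts 1.26% and 0.687% and then 6.70% and 3.46%. On library totals, without the scaling between libraries, Y-linked transcripts summed to 219 CPM in WT untreated replicate 2 and to at most 0.209 CPM in the other 3 mice, so 1 male stood among 3 females, and the part of sex in the results was not tested beyond leaving that mouse out. Without that male, which leaves females only, 2080 genes were higher and 2147 lower. Bulk RNA cannot tell fewer cells of a type from less RNA per cell.

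With DSS, 6315 of the 17522 genes tested passed the threshold (36%), 3022 higher (17.2%) and 3293 lower (18.8%). The 2 directions differed in size: 1849 of the genes that rose (10.6% of those tested) and 1251 of the genes that fell (7.14%) moved at least 2-fold, and at least 32-fold it was 103 and 41. Genes that rose made up 9.63% and 8.08% of all counts in the untreated mice and 25.2% and 22.7% in the DSS mice. Genes that fell went from 47.3% and 48.9% to 26.9% and 28.4% of counts. Of the 11207 genes that did not pass, 6385 had a 95% interval that stayed within 2-fold in both directions, and the other 4822 could hide a larger change. The share of genes past the threshold grew with expression, from 18.6% below a mean of 1 CPM to 49.4% at 100 CPM or more, as the median SE fell from 0.62 to 0.13. Counts of calls dropped by more than 1.5 times without WT DSS replicate 1 (1668 higher, 1910 lower), without WT DSS replicate 2 (1670 and 1730) and, for lower genes, without WT untreated replicate 2 (2147). For 16 of the 65 gene lists with a tested member neither share of members past the threshold exceeded 1.5 times that over all genes tested: resident macrophage, dendritic cell, B cell, T cell, antiviral interferon response, prostaglandin and eicosanoid, EGF receptor and ligands, tuft cell, DNA replication and S phase, unfolded protein response, glycolysis and glucose uptake, thrombospondins and matricellular, Wnt ligands, R-spondins and antagonists, enteric neuron, enteric glia and pacemaker cell and red blood cell.

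**Figure D1:**
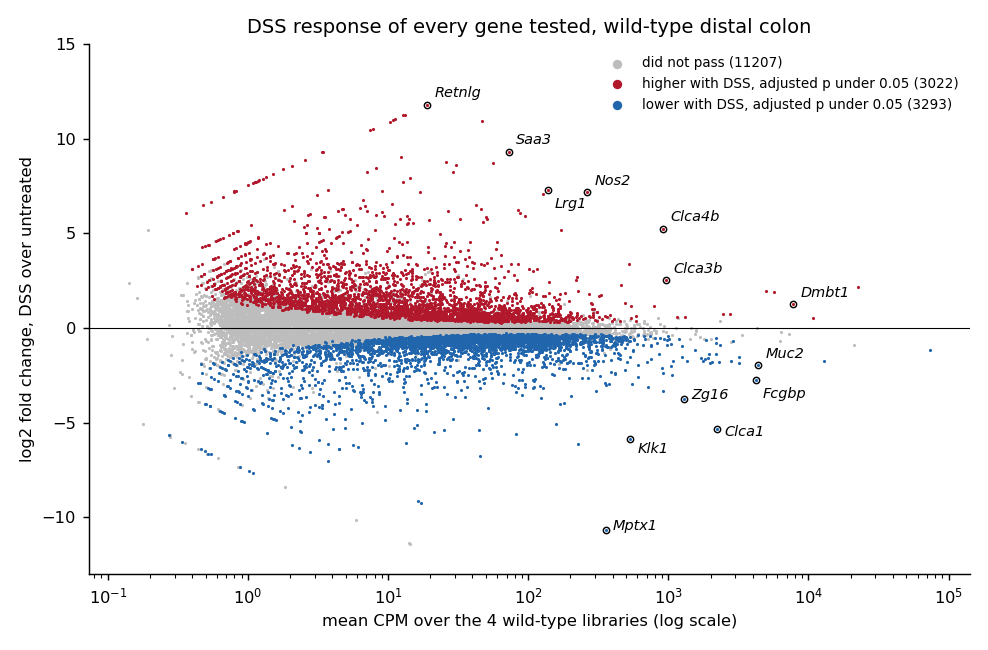
Log2 fold change of DSS over untreated (vertical axis) against the mean CPM of the 4 WT libraries (horizontal log axis) for all 17522 genes tested, 1 point a gene. The 3022 red points are higher and the 3293 blue points lower at an adjusted p under 0.05, and the circled genes are described in the text.

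Changes in CPM, which is not corrected for transcript length, were large for several secreted and mucosal proteins of the epithelium. Dmbt1, a scavenger receptor-type glycoprotein of mucosal surfaces, stood at 3409.6 and 5782 CPM in the untreated mice and 11063 and 10745 CPM after DSS. Clca4b, of the calcium-activated chloride channel regulator family, stood at 14.8 and 79.1 and then 1711 and 1862 CPM, and its relative Clca3b at 320.1 and 257 and then 1678 and 1617 CPM. All DSS values of these 3 genes lay above both untreated values, which was a condition for naming the largest gains. Over all genes tested 71.4% showed such a separation in 1 direction or the other. The log2 fold changes were 1.25 ± 0.30 (adjusted p = 0.0148) for Dmbt1, 5.24 ± 0.68 (0.00115) for Clca4b and 2.51 ± 0.18 (0.000123) for Clca3b. Dmbt1 did not pass without WT DSS replicate 1 (adjusted p = 0.0594). Dmbt1 did not pass without WT DSS replicate 2 (adjusted p = 0.0579).
The CLCA family, which sits in 1 cluster on chromosome 3, did not move as a block. Clca1, the secreted member made by goblet cells, stood at 3311 and 5341 CPM untreated and 119.9 and 94.7 CPM after DSS (log2 fold change -5.33 ± 0.29, adjusted p = 3.42e-05), against rises of Clca3a1 (2.71 ± 0.27) and Clca3a2 (3.11 ± 0.16), whose adjusted p were 0.000349 and 3.10e-05. Clca1 was therefore low in both DSS mice, in the same libraries in which Clca3a1, Clca3a2, Clca3b and Clca4b were high. Clca4a did not pass (log2 fold change -1.31 ± 0.52, adjusted p = 0.0816). These genes are close copies of each other, and how reads shared between copies were counted is not given in the sources used here, so the division of counts within the family is uncertain, as it is for the Gstm, Ugt2b, Gal3st2, guanylate-binding, H2 and Serpina3 genes below. The nuclear RNA Malat1, whose gain in mean CPM came next after that of Dmbt1 among the genes eligible for naming, stood at 9349.6 and 8527 and then 12772 and 12795 CPM (log2 fold change 0.52 ± 0.17, adjusted p = 0.0451). The other large gains fell to Duox2, an epithelial oxidase (log2 fold change 2.27 ± 0.44, adjusted p = 0.00609), Nos2, Fth1, the ferritin heavy chain (log2 fold change 1.17 ± 0.13, adjusted p = 0.000508), Igfbp5 (log2 fold change 3.38 ± 0.30, adjusted p = 0.000240), H2-D1, Ly6a and the cytoskeletal genes Myh9 and Plec (0.56 ± 0.16 for Plec). Malat1 and Plec did not pass without WT untreated replicate 2 (adjusted p = 0.0878 and 0.0580). Malat1, Dmbt1 and Plec did not pass without WT DSS replicate 1 (adjusted p = 0.135, 0.0594 and 0.165). Malat1, Dmbt1 and Ly6a did not pass without WT DSS replicate 2 (adjusted p = 0.155, 0.0579 and 0.0733). Clca4a passed as lower without WT untreated replicate 1 (adjusted p = 0.0104). Ly6a stood at a log2 fold change of 2.07 without WT untreated replicate 2.

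The 12 largest losses held 3.61% and 4.11% of all counts in the untreated mice and 1.12% and 1.19% in the DSS mice. Fcgbp, a mucus protein that binds the gel-forming mucin, stood at 6667 and 7928 CPM untreated and 1103 and 1104 CPM after DSS. Muc2, the gel-forming mucin itself, stood at 5535 and 8426 and then 1400.2 and 2154 CPM, and Muc3, a transmembrane mucin, at 4403 and 5629 and then 1263 and 1551 CPM. For these 3 genes every DSS value lay below every untreated value, which was a condition for naming the largest losses. A separation in either direction was shown by 71.4% of the genes tested. The log2 fold changes were -2.73 ± 0.18, -1.97 ± 0.28 and -1.83 ± 0.19 (adjusted p = 8.41e-05, 0.00175 and 0.000410). The rest were Clca1, Zg16, Car1, Slc26a3, Ckmt1 and Tgm3 of the epithelium, Krt8, the antioxidant enzyme Prdx6 and the smooth muscle myosin Myh11. Tgm3, a transglutaminase, fell from 1453 and 1888 to 216 and 112 CPM (log2 fold change -3.35 ± 0.31, adjusted p = 0.000294) and Ckmt1, a mitochondrial creatine kinase, from 1942 and 2246 to 690.4 and 552 CPM (log2 fold change -1.75 ± 0.18, adjusted p = 0.000378). Of 7 transmembrane mucins 2 fell (4 with WT untreated replicate 1 left out), the other being the transmembrane mucin Muc4 (-1.84 ± 0.16). Krt8 did not pass without WT untreated replicate 2 (adjusted p = 0.0715). Krt8 did not pass without WT DSS replicate 1 (adjusted p = 0.0560). Krt8 and Prdx6 did not pass without WT DSS replicate 2 (adjusted p = 0.119 and 0.0602).

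The bases just upstream of 6 genes are shown, those with the 3 largest gains and the 3 largest losses in mean CPM. They were taken from genes past the threshold whose WT groups did not overlap and that had a promoter in the RefSeq table (build GRCm38.p6). Each run holds the 250 bases before the annotated start, 5′ to 3′ on the gene's strand, and capitals mark a match on either strand to 1 of 6 motifs. The motifs searched were κB by name, the C/EBP motif TTGCNNAA, the AP-1 motif TGANTCA, the interferon element GAAANNGAA, the HNF4 motif CAAAGTCCA and the CDX motif TTTATNG. Malat1, Clca4b and Clca3b rose, and Fcgbp, Muc2 and Muc3 fell.
Malat1 (chr19:5802673-5802922, minus strand): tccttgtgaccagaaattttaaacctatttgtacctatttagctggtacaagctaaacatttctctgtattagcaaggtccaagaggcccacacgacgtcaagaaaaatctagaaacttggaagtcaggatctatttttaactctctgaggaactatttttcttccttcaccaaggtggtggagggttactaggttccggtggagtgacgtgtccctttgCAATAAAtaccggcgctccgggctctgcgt
Clca4b (chr3:144932530-144932779, minus strand): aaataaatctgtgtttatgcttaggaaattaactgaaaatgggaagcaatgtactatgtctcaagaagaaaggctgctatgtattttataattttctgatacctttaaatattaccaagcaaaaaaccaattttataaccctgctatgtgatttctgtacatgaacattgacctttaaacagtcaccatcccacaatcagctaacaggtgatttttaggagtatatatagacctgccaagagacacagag
Clca3b (chr3:144849303-144849552, minus strand): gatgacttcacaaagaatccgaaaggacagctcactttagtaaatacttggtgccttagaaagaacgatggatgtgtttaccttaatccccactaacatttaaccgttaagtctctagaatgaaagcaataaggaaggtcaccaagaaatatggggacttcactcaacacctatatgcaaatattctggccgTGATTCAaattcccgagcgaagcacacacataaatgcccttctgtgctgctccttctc
Fcgbp (chr7:28070986-28071235, plus strand): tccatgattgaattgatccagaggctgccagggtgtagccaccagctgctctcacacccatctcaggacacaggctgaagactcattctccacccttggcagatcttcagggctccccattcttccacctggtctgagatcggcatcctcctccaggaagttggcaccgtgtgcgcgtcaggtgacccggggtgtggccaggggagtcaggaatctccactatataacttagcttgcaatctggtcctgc
Muc2 (chr7:141690090-141690339, plus strand): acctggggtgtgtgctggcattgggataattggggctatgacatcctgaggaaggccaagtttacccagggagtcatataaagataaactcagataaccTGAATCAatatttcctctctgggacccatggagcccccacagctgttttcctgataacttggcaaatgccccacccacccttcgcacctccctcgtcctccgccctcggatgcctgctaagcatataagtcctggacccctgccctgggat
Muc3 (chr5:137166047-137166296, minus strand): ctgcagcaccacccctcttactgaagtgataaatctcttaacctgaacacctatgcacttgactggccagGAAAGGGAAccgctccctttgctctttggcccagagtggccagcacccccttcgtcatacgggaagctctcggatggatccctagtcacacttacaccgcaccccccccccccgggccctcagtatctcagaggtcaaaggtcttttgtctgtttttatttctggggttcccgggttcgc
Among these windows Malat1 held a CDX match, Clca3b and Muc2 an AP-1 match each and Muc3 an interferon element, while Clca4b and Fcgbp held none of the 6. A match is a string of letters and not a bound site. Over the whole promoters of 300 bases, which reach 50 bases past the start, the table held 11618 of the genes tested, 997 of those at least 2-fold higher and 823 of those at least 2-fold lower. The interferon element stood in 12.04% of the promoters of genes that rose, 7.53% of those that fell and 7.44% of all. AP-1 stood in 9.53%, 6.68% and 5.36%, κB in 12.9%, 9.11% and 10.1%, and C/EBP in 11.7%, 10.3% and 8.53%. CDX stood in 10.8%, 12.5% and 7.31%, and HNF4 in 0.903%, 0.729% and 0.439%. Of the 6 motifs, the CDX motif was more frequent in falling genes and the other 5 in rising genes. No test was made of these shares.

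Goblet cell products fell, with 1 exception in the opposite direction. Of 12 products tested, 11 fell and 1 rose, with a median log2 fold change of -2.35 against 0.0024 for all genes tested. Klk1, a tissue kallikrein, stood at 952 and 1145 CPM untreated and 18.6 and 17.5 CPM after DSS. Zg16, a lectin-like mucus protein, stood at 1919 and 2918 and then 169.9 and 193 CPM, and Tff3, the trefoil peptide, at 527 and 802 and then 85.1 and 85.0 CPM. The DSS values lay far below the untreated ones in both mice for all 3 (-5.86 ± 0.21, -3.74 ± 0.25 and -2.97 ± 0.20, adjusted p = 6.28e-06, 0.000101 and 9.00e-05). Agr2, the disulfide isomerase needed to fold Muc2, fell less (log2 fold change -1.43 ± 0.16, adjusted p = 0.000532), as did Spink4 (log2 fold change -1.55 ± 0.21, adjusted p = 0.00128) and Bcas1 (log2 fold change -1.78 ± 0.16, adjusted p = 0.000240). The exception was Retnlb, the goblet cell resistin-like protein, described with its family below. Transcription factors of the lineage fell too, in 6 of 10 regulators: Atoh1, which commits cells to the secretory fate, stood at 33.5 and 38.9 CPM untreated and 9.75 and 9.89 CPM after DSS (log2 fold change -1.88 ± 0.15, adjusted p = 0.000170), and the factors Creb3l4 (-1.22 ± 0.18) and Klf4 (-1.13 ± 0.16) fell. Spdef, which drives goblet maturation, did not pass (log2 fold change -0.48 ± 0.19, adjusted p = 0.0814). The count of regulators was 3 with WT DSS replicate 2 left out. Enzymes that build mucin sugars fell in 10 of 21, with Galnt7 at -1.68 ± 0.11 and Gcnt3 at -2.17 ± 0.16, and the related sulfotransferase Gal3st2c fell from 85.7 and 87.2 to 1.93 and 2.20 CPM (log2 fold change -5.38 ± 0.14, adjusted p = 2.04e-06). Gcnt4 was the 1 glycan enzyme that rose (log2 fold change 2.43 ± 0.28, adjusted p = 0.000678), the count being 3 with WT untreated replicate 2 left out. Further regulators and enzymes that fell were the epithelial stress sensor Ern2 (-0.76 ± 0.16), the sulfotransferase Gal3st2 (-3.18 ± 0.28) and the sialyltransferase St3gal6 (-1.58 ± 0.15). Ern2 did not pass without WT DSS replicate 1 (adjusted p = 0.0512). Ern2 did not pass without WT DSS replicate 2 (adjusted p = 0.0502).

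The 4 resistin-like genes moved in both directions. These genes encode small secreted cysteine-rich proteins made by different cells: Retnlb by goblet cells, Retnlg by myeloid cells, Retnla by alternatively activated macrophages and other cells, and Retn by mouse adipocytes. Retnlb stood at 0.639 and 0.604 CPM untreated and 14.3 and 44.2 CPM after DSS (log2 fold change 5.54 ± 0.67, adjusted p = 0.000859). Retnlg had no counts in either untreated mouse and stood at 43.3 and 33.0 CPM after DSS, at least 347-fold higher against a floor of 3 counts over the group (adjusted p = 0.000105). Both DSS mice were thus above both untreated mice for these genes, with Retnlb about 3 times higher in replicate 2 than in replicate 1. Retnla went from 3.59 and 7.31 to 0 and 0.0916 CPM, 119-fold lower (counting interval 21.1 to 4748), adjusted p = 0.000958, and Retn from 0.878 and 8.45 to 0.290 and 0.0916 CPM (log2 fold change -4.57 ± 1.29, adjusted p = 0.0302). The untreated Retn level rested on replicate 2, in which other adipocyte genes were high as well: Adipoq stood at 2.16 and 10.7 CPM untreated and 0.386 and 0.366 after DSS, and Cfd at 9.18 and 66.8 and then 5.504 and 3.30. The part of adipose tissue in the Retn result was not tested. Mptx1, a mucosal pentraxin, stood at 734 and 697 CPM in the untreated mice and 0.579 and 0.275 CPM in the DSS mice, log2 fold change -10.69 ± 0.50, adjusted p = 1.81e-05. Its relative Ptx3, the long pentraxin of inflamed tissue, went from 0.160 and 0 to 0.966 and 2.66 CPM (25.1-fold higher (counting interval 6.51 to 215), adjusted p = 0.0205). Retn, Cfd and Ptx3 did not pass without WT untreated replicate 2 (adjusted p = 0.187, 0.206 and 0.0801). Retn, Adipoq and Cfd did not pass without WT DSS replicate 1 (adjusted p = 0.103, 0.0646 and 0.0759). Retn, Adipoq, Cfd and Ptx3 did not pass without WT DSS replicate 2 (adjusted p = 0.146, 0.0698, 0.120 and 0.121). Ptx3 had no counts in the other untreated mouse without WT untreated replicate 1. Adipoq stood at a log2 fold change of -2.45 without WT untreated replicate 2.

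**Figure D2:**
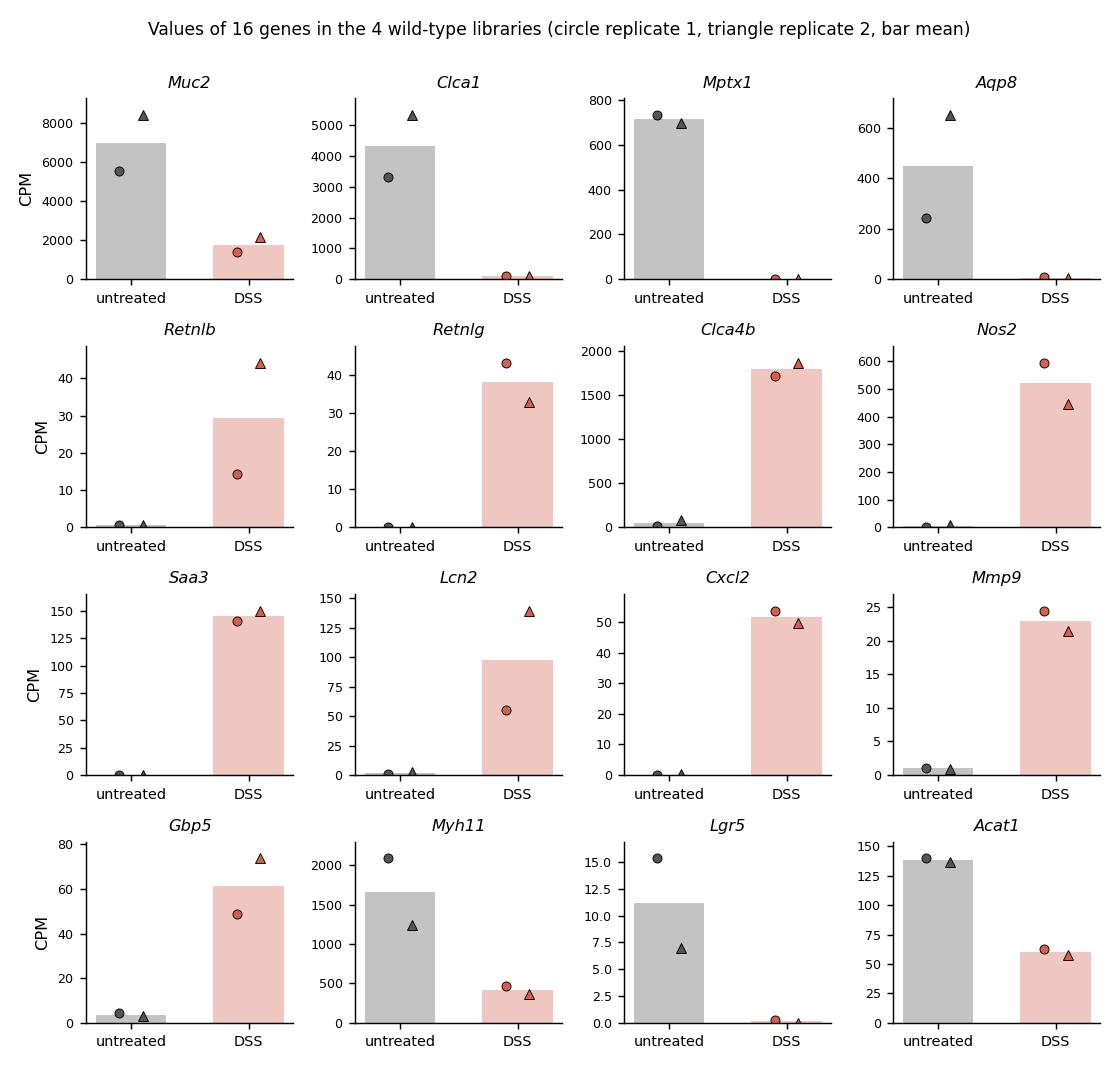
CPM (vertical axes, each from 0) of 16 genes in the 4 WT libraries, with a circle for replicate 1, a triangle for replicate 2 and a bar for the group mean. In each panel the 2 DSS values lie on 1 side of the 2 untreated values, from Mptx1 (734 and 697 CPM untreated, 0.579 and 0.275 CPM with DSS) to Nos2 (0.798 and 6.24 and then 595 and 447 CPM).

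Genes with which absorptive colonocytes handle salt and water fell. Of 31 transport genes 19 fell and 0 rose (1 with WT untreated replicate 2 left out; median -1.17). For each list described with 0 members in a direction, at most 1 member had an unadjusted p under 0.05 there by edgeR. By DESeq2 or limma-voom 0 passed, except 1 lower antiviral gene by DESeq2 and 1 lower interleukin 6 family gene by limma-voom. Aqp8, a water channel, stood at 243 and 650.4 CPM untreated and 7.63 and 5.04 CPM after DSS. Slc26a3, which exchanges chloride for bicarbonate, stood at 1168 and 2415 and then 264 and 370.1 CPM, and the carbonic anhydrase Car4 at 623 and 1331 and then 75.3 and 176 CPM. For these genes untreated replicate 2 was higher than replicate 1, and both untreated mice lay above both DSS mice (-6.14 ± 0.60, -2.50 ± 0.35 and -2.96 ± 0.51, adjusted p = 0.000346, 0.00155 and 0.00357). The butyrate transporters Slc5a8 and Slc16a1 fell (-1.72 ± 0.15 and -1.17 ± 0.11), and so did the chloride channel Cftr (-1.79 ± 0.15), the sodium-proton exchanger Slc9a2 (-1.99 ± 0.21), the mineralocorticoid receptor Nr3c2 (-1.83 ± 0.18) and Car2 (-2.41 ± 0.18). The sodium channel subunit Scnn1a fell as well (-0.83 ± 0.14). Colonocyte identity genes moved less uniformly: 6 of 19 fell and 1 rose (10 fell without WT untreated replicate 1). Hnf4a, a master regulator of enterocytes, went from 746 and 821 to 387 and 287 CPM (log2 fold change -1.22 ± 0.18, adjusted p = 0.00211), Mep1a, a brush border protease, from 173 and 262 to 31.0 and 21.1 CPM (log2 fold change -3.06 ± 0.27, adjusted p = 0.000233) and Fabp2 from 8.70 and 16.4 to 0.483 and 0.275 CPM (log2 fold change -5.03 ± 0.52, adjusted p = 0.000426). Cdx2, the intestinal identity factor, did not pass, with an interval of -1.04 to 0.58. Cdhr2, a brush border cadherin, fell (-1.12 ± 0.19) and Alpl, an alkaline phosphatase, was the 1 that rose (2.74 ± 0.66). Alpl did not pass without WT untreated replicate 2 (adjusted p = 0.0761). Alpl did not pass without WT DSS replicate 2 (adjusted p = 0.0917).

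Detoxifying enzymes formed the list with the most falling members. Of 38 genes of xenobiotic and steroid metabolism, 32 fell and 0 rose (1 with WT DSS replicate 1 left out; median -2.12). Ugt2b35, a glucuronosyltransferase, stood at 30.9 and 30.0 CPM untreated and 1.74 and 1.28 CPM after DSS (log2 fold change -4.33 ± 0.21, adjusted p = 1.81e-05). Gstm1, a glutathione transferase, stood at 246 and 213 and then 28.1 and 22.5 CPM (log2 fold change -3.18 ± 0.16, adjusted p = 2.01e-05), and the amine oxidase Maob at 44.7 and 44.9 and then 5.12 and 5.13 CPM (log2 fold change -3.13 ± 0.15, adjusted p = 1.81e-05). The 2 mice of each group nearly coincided for these enzymes. The oxidase Hao2, the sulfotransferase Sult1a1 and the efflux pump Abcb1a fell (-3.97 ± 0.25, -2.95 ± 0.19 and -3.32 ± 0.31), as did Gstm3 (-4.37 ± 0.27). Gstm2, which was not in the list but had 1 of the 8 smallest p among falling genes, fell from 86.7 and 83.3 to 13.1 and 14.1 CPM (log2 fold change -2.64 ± 0.11, adjusted p = 1.40e-05). Others of the 8 smallest p among falling genes belonged to Shisa2, from 40.6 and 42.1 to 0.966 and 0.824 CPM (log2 fold change -5.52 ± 0.23, adjusted p = 1.35e-05), Sval1, from 280.1 and 359.7 to 18.9 and 20.97 CPM (log2 fold change -4.002 ± 0.17, adjusted p = 1.40e-05), and Nxpe4, from 139 and 166 to 15.5 and 18.1 CPM (log2 fold change -3.18 ± 0.14, adjusted p = 1.70e-05).

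Genes of energy metabolism fell in several lists. Of 27 genes of fatty acid oxidation and ketogenesis, 19 fell and 1 rose (0 with WT untreated replicate 2 left out, 0 with WT DSS replicate 1 left out and 0 with WT DSS replicate 2 left out). Acat1, a mitochondrial thiolase, went from 139.8 and 137 to 62.8 and 57.7 CPM (log2 fold change -1.20 ± 0.11, adjusted p = 0.000233) and Ppargc1a, a coactivator of mitochondrial genes, from 72.9 and 89.1 to 27.04 and 24.9 CPM (log2 fold change -1.64 ± 0.30, adjusted p = 0.00443). Nuclear-encoded respiratory chain subunits fell in 24 of 31 (15 with WT DSS replicate 2 left out), with a median of -0.61 and the complex III subunit Uqcrc2 lowest at -1.13 ± 0.14. Of 20 mitochondrially encoded genes 15 fell and 0 rose (median -1.55). Glycolysis genes mostly did not pass, 3 rising and 1 falling of 21 (3 with WT untreated replicate 1 left out). Those that rose were Pfkfb3, which makes the activator of phosphofructokinase (8.14 and 23.3 CPM untreated, 149 and 109 after DSS, log2 fold change 3.02 ± 0.46, adjusted p = 0.00217), the lactate exporter Slc16a3 (log2 fold change 2.28 ± 0.36, adjusted p = 0.00261) and the glucose transporter Slc2a3 (log2 fold change 1.74 ± 0.30, adjusted p = 0.00361). Also lower in fatty acid oxidation were the acyl-CoA dehydrogenase Acadm (-1.07 ± 0.10), the thiolase Acaa2 (-1.19 ± 0.12) and the peroxisomal enzyme Ehhadh (-1.31 ± 0.14), and of the respiratory chain the complex I subunit Ndufa9 (-0.84 ± 0.10), the complex IV subunit Cox6c (-1.04 ± 0.14) and the complex IV subunit Cox8a (-0.80 ± 0.11).

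Arginine-handling genes moved in both directions. Nos2, the inducible nitric oxide synthase, stood at 0.798 and 6.24 CPM untreated and 595 and 447 CPM after DSS (log2 fold change 7.16 ± 0.72, adjusted p = 0.000380). Arg1, an arginase of activated macrophages, had 3 counts over both untreated mice and stood at 14.4 and 11.9 CPM after DSS, 119.9-fold higher (counting interval 40.6 to 585), adjusted p = 0.000228. Arg2 (log2 fold change 3.24 ± 0.69, adjusted p = 0.00905), Ass1, which regenerates arginine (log2 fold change 1.26 ± 0.14, adjusted p = 0.000581), and the arginine transporter Slc7a2 (log2 fold change 3.04 ± 0.45, adjusted p = 0.00195) rose as well. Some other enzymes of the urea cycle and of ornithine handling went the other way. Cps1 fell from 39.3 and 31.1 to 2.41 and 1.92 CPM (log2 fold change -4.01 ± 0.47, adjusted p = 0.000773). Otc fell from 7.74 and 7.11 to 0 and 0.0916 CPM (157-fold lower (counting interval 27.9 to 6248), adjusted p = 0.000232). Oat fell from 149 and 119 to 54.8 and 61.8 CPM (log2 fold change -1.20 ± 0.16, adjusted p = 0.00112). In all, 7 of 14 genes of the list rose and 4 fell. Gatm, which makes the creatine precursor, fell too (-1.66 ± 0.30). Arg1 had no counts in the other untreated mouse without WT untreated replicate 1.

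Barrier genes fell more often than they rose. Of 20 tight junction and barrier genes 11 fell (7 with WT DSS replicate 2 left out) and 1, Tjp3, rose (log2 fold change 0.51 ± 0.12, adjusted p = 0.0136), the rising count being 2 with WT untreated replicate 2 left out and 0 with WT DSS replicate 1 left out. Ocln, which encodes occludin, went from 154 and 179.7 to 60.1 and 62.4 CPM (log2 fold change -1.45 ± 0.12, adjusted p = 0.000179), Cldn15 from 16.3 and 19.1 to 6.66 and 6.04 CPM (log2 fold change -1.48 ± 0.17, adjusted p = 0.000765) and the pore-forming Cldn2 from 142 and 100.1 to 41.0 and 55.7 CPM (log2 fold change -1.32 ± 0.22, adjusted p = 0.00330). Among 17 crypt base genes 7 fell and 2 rose. Lgr5, the R-spondin receptor that marks crypt base stem cells, stood at 15.3 and 6.98 CPM untreated and 0.290 and 0 CPM after DSS, 76.5-fold lower (counting interval 25.9 to 373), adjusted p = 0.000990. Myb went from 131 and 135 to 58.3 and 54.6 CPM (log2 fold change -1.24 ± 0.18, adjusted p = 0.00168) and Lgr4 from 362 and 367 to 232 and 222 CPM (log2 fold change -0.68 ± 0.12, adjusted p = 0.00379), while Ephb2 rose (log2 fold change 0.75 ± 0.16, adjusted p = 0.00827) and Ascl2, the stem cell transcription factor, did not pass at -0.95. Of 19 hormone cell genes 7 fell and 2 rose (4 with WT untreated replicate 2 left out and 4 with WT DSS replicate 1 left out fell), with the colonic peptide Insl5 at -1.85 ± 0.36 and Tph1, which makes serotonin, at -1.30 ± 0.19. In tuft cells the channel Trpm5 fell from 2.32 and 5.03 to 0.0966 and 0.275 CPM (log2 fold change -4.22 ± 0.76, adjusted p = 0.00440), whereas Dclk1 did not pass (0.34 ± 0.23). Further members that fell were the claudin Cldn12 (-0.84 ± 0.10) and the myosin light chain kinase Mylk (-1.34 ± 0.20) of the barrier list. Mylk is also a smooth muscle gene, and 15 of 19 smooth muscle genes fell (median -1.65), whose part in its fall was not tested. The other crypt base changes were the hyaluronan receptor Cd44 (0.79 ± 0.22) upward and the receptor inhibitor Lrig1 (-0.67 ± 0.14) downward. Hormone cell genes that rose were the tachykinin precursor Tac1 (1.66 ± 0.34), which is also counted among the enteric neuron genes, and the peptide hormone cholecystokinin Cck (2.49 ± 0.72). Others that fell were the prohormone convertase Pcsk1 (-1.01 ± 0.20) and the granule protein Scg2 (-1.04 ± 0.22). Of 12 tuft cell genes 2 rose, among them the actin-bundling protein Avil (0.95 ± 0.27), and 3 fell, among them the surface glycoprotein Cd24a (-1.46 ± 0.16) and the signalling regulator Rgs13 (29.9-fold lower (counting interval 7.99 to 251)). Cck and Avil did not pass without WT untreated replicate 1 (adjusted p = 0.0933 and 0.100). Cd44, Cck and Scg2 did not pass without WT untreated replicate 2 (adjusted p = 0.0789, 0.0855 and 0.0580). Tjp3, Cd44, Lrig1, Pcsk1 and Scg2 did not pass without WT DSS replicate 1 (adjusted p = 0.0941, 0.0921, 0.0502, 0.05002 and 0.0524). Cd44, Tac1, Cck and Avil did not pass without WT DSS replicate 2 (adjusted p = 0.0814, 0.0501, 0.162 and 0.145). Lrig1 stood at a log2 fold change of -0.43 without WT untreated replicate 1. Lgr5 had no counts in the other DSS mouse without WT DSS replicate 1. Rgs13 had no counts in the other DSS mouse without WT DSS replicate 2.

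Wound-associated epithelial genes rose in 10 of 25 and fell in 3. Plet1, a surface protein of wound-covering epithelium, stood at 0.319 and 3.15 CPM untreated and 176 and 328 CPM after DSS (log2 fold change 7.10 ± 0.61, adjusted p = 0.000204). Plaur, the urokinase receptor, stood at 2.71 and 6.84 and then 57.2 and 42.4 CPM (log2 fold change 3.36 ± 0.37, adjusted p = 0.000534), and Ly6a, used as a marker of the fetal-like repair state, at 171 and 391 and then 654 and 744 CPM (log2 fold change 1.31 ± 0.32, adjusted p = 0.0160). All 3 genes were higher in both DSS mice than in either untreated mouse. The alarmin Il33 went from 8.70 and 6.30 to 24.5 and 31.2 CPM (log2 fold change 1.90 ± 0.26, adjusted p = 0.00156) and the keratin Krt23 from 2.47 and 1.81 to 9.95 and 18.7 CPM (log2 fold change 2.74 ± 0.41, adjusted p = 0.00208). The members that fell were S100a6, Anxa3 and Ccnd2 (-0.70 ± 0.16, -0.62 ± 0.18 and -0.57 ± 0.17). Of the growth factors that bind epidermal growth factor receptors, Ereg stood at 9.26 and 13.3 CPM untreated and 45.3 and 161 CPM after DSS (log2 fold change 3.19 ± 0.53, adjusted p = 0.00311) and Nrg1 at 18.2 and 8.52 and then 85.0 and 189.5 CPM (log2 fold change 3.37 ± 0.43, adjusted p = 0.00110), whereas Areg, Hbegf and Tgfa did not pass (-0.51 ± 0.41, -0.16 ± 0.59 and 0.0876 ± 0.15). Genes of squamous surfaces appeared at low level: Sprr2h went from 0 and 0.0671 to 8.79 and 24.0 CPM (455-fold higher (counting interval 81.2 to 18029), adjusted p = 0.000362) and Dsg3 from 0 and 0.469 to 14.8 and 17.5 CPM (log2 fold change 5.94 ± 0.69, adjusted p = 0.00112). The basal keratin Krt14 did not pass and stayed at or under 2.12 CPM in all 4 mice. Of 18 keratin and squamous genes 7 rose, among them the keratin Krt6b (at least 20.6-fold higher) and the squamous envelope protein Sprr2d (at least 46.8-fold higher), and 4 fell (7 with WT untreated replicate 1 left out and 1 with WT DSS replicate 2 left out), with the keratin Krt18 (-0.93 ± 0.16), the keratin Krt19 (-0.65 ± 0.14) and the keratin Krt17 (21.7-fold lower (counting interval 7.18 to 107)) beside Krt8. Of 13 EGF receptor genes and ligands 3 rose, the ligand epigen Epgn (41.3-fold higher (counting interval 6.89 to 1680.1)) being the remaining one, and 2 fell (1 with WT untreated replicate 2 left out, 0 with WT DSS replicate 1 left out and 1 with WT DSS replicate 2 left out), among them the ligand betacellulin Btc (-0.70 ± 0.24). The falling count of wound-associated genes was 1 with WT untreated replicate 2 left out, 0 with WT DSS replicate 1 left out and 0 with WT DSS replicate 2 left out. Ccnd2 and Btc did not pass without WT untreated replicate 1 (adjusted p = 0.181 and 0.159). S100a6, Anxa3, Krt8 and Btc did not pass without WT untreated replicate 2 (adjusted p = 0.0579, 0.192, 0.0715 and 0.124). S100a6, Anxa3, Ccnd2, Krt8 and Btc did not pass without WT DSS replicate 1 (adjusted p = 0.0639, 0.149, 0.148, 0.0560 and 0.229). Ly6a, S100a6, Anxa3, Ccnd2, Krt19, Krt17, Krt8 and Btc did not pass without WT DSS replicate 2 (adjusted p = 0.0733, 0.0656, 0.0757, 0.0980, 0.0856, 0.0595, 0.119 and 0.0797). Areg passed as lower without WT untreated replicate 1 (adjusted p = 0.0144). Ly6a stood at a log2 fold change of 2.07 without WT untreated replicate 2. Dsg3 had no counts in the other untreated mouse without WT untreated replicate 2. Krt17 had no counts in the other DSS mouse without WT DSS replicate 1. Ereg stood at a log2 fold change of 2.002 without WT DSS replicate 2.

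Antimicrobial and acute-phase genes rose in 10 of 16, and 2 fell (4 with WT untreated replicate 1 left out). Saa3, an acute-phase apolipoprotein, stood at 0.160 and 0.268 CPM untreated and 141 and 150.4 CPM after DSS (log2 fold change 9.31 ± 0.22, adjusted p = 5.41e-06), and Lrg1, a secreted acute-phase glycoprotein outside the list, at 1.84 and 1.61 and then 239 and 309.8 CPM (log2 fold change 7.31 ± 0.25, adjusted p = 6.28e-06). Lcn2, the siderophore-binding lipocalin, stood at 1.12 and 2.15 and then 55.5 and 139.7 CPM (log2 fold change 5.87 ± 0.59, adjusted p = 0.000377). Saa3 and Lrg1 were alike in the 2 DSS mice, and Lcn2 was higher in replicate 2. Reg3b, a bactericidal lectin, had no counts untreated and stood at 12.9 and 18.2 CPM after DSS (at least 143-fold higher, adjusted p = 0.000192), Pla2g2a, a bactericidal phospholipase whose gene is known to be disrupted in C57BL/6 mice, rose by 4.03 ± 0.51, and Ido1, which breaks down tryptophan, by 5.77 ± 0.60. Of the 2 that fell, Reg4, a lectin of deep crypt cells, went from 259 and 202 to 16.5 and 19.3 CPM (log2 fold change -3.68 ± 0.31, adjusted p = 0.000192), and Nox1, the colonic superoxide producer, from 77.4 and 69.3 to 25.9 and 21.3 CPM (log2 fold change -1.64 ± 0.19, adjusted p = 0.000685). Thus the oxidase Duox2 and the oxidase Nox1 moved in opposite directions. Lypd8, which keeps flagellated bacteria from the epithelium, did not pass (log2 fold change -0.68 ± 0.27, adjusted p = 0.0793). Cwh43, a membrane protein outside the list, had 1 of the 8 smallest p among rising genes (3.19 and 3.55 CPM untreated, 54.1 and 41.8 after DSS, log2 fold change 3.82 ± 0.18, adjusted p = 1.81e-05). Lypd8 passed as lower without WT untreated replicate 1 (adjusted p = 0.0143).

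**Figure D3:**
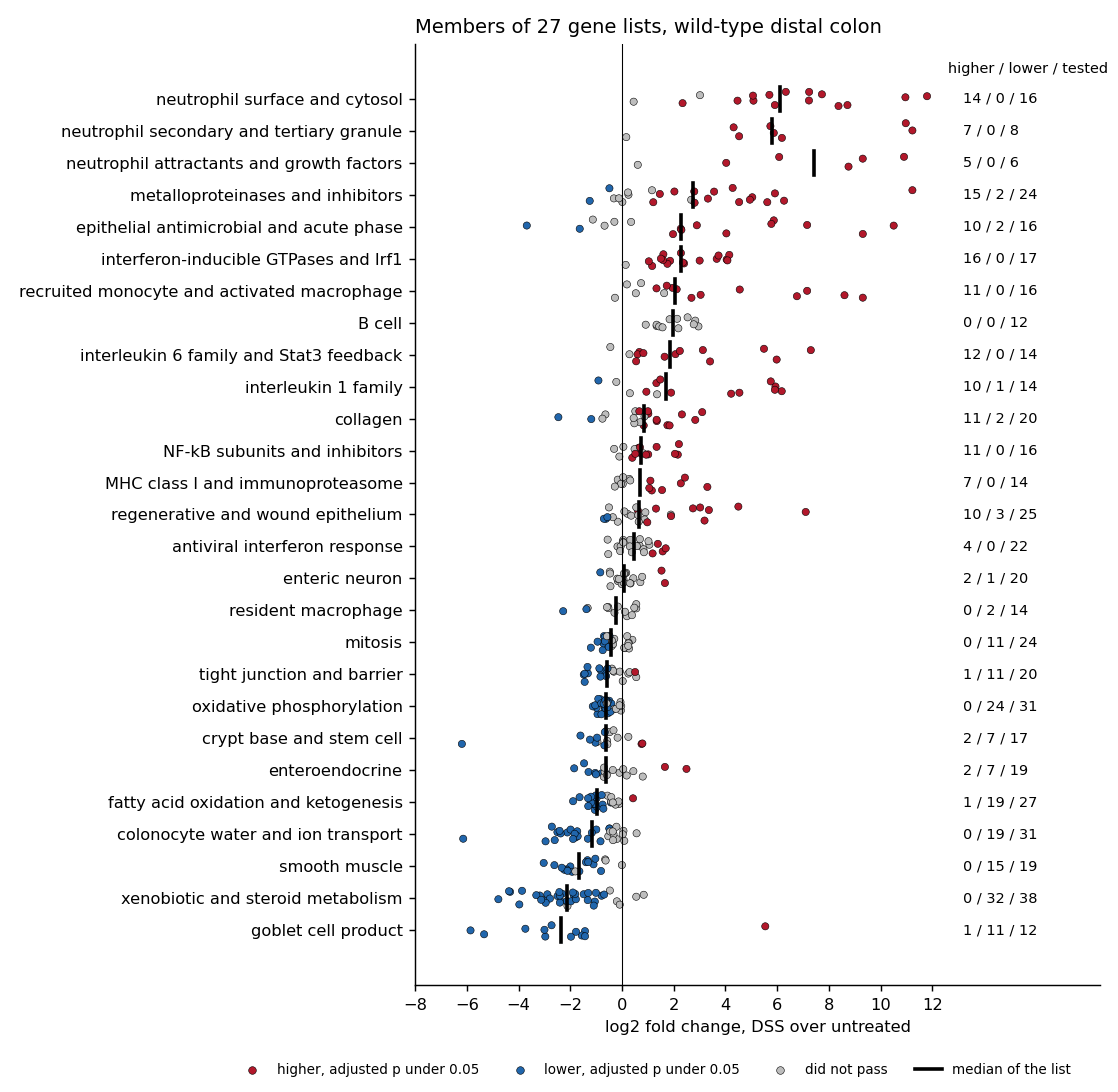
Log2 fold change of DSS over untreated (horizontal axis) for the members of 27 gene lists, 1 point a gene, with red for higher and blue for lower at an adjusted p under 0.05, grey for genes that did not pass and a black bar for the list's median. The 3 neutrophil lists have the highest medians (14 of 16 and 7 of 8 tested members and 5 of 6 tested attractants higher), and goblet cell products the lowest (11 of 12 lower). Only members that passed the count filter are drawn.

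Neutrophil transcripts rose from near 0. Of 16 surface and cytosolic genes tested (18 listed) 14 rose (median 6.12, or 5.39 with genes at 0 counts set to their bound). Of 8 secondary and tertiary granule genes tested (9 listed) 7 rose. Members without untreated counts passed the count filter through other libraries, so these shares favour rises. S100a9, a chain of calprotectin, stood at 0.160 and 0.335 CPM untreated and 76.6 and 147 CPM after DSS (log2 fold change 8.72 ± 0.90, adjusted p = 0.000419), and its partner S100a8 at 0 and 0.0671 and then 64.5 and 123 CPM. Il1r2, a decoy receptor for interleukin 1, stood at 0.479 and 0.402 CPM untreated and 23.6 and 30.4 CPM after DSS (log2 fold change 5.91 ± 0.27, adjusted p = 1.81e-05), and Csf3r, the receptor for granulocyte colony-stimulating factor, at 0.878 and 0.604 and then 53.3 and 23.9 CPM (log2 fold change 5.70 ± 0.49, adjusted p = 0.000211). The calprotectin genes were about 2 times higher in DSS replicate 2, and Csf3r about 2 times higher in replicate 1, so the 2 mice did not rank alike. Mmp8, a granule collagenase, had no counts untreated and stood at 19.8 and 31.7 CPM after DSS (at least 237-fold higher, adjusted p = 0.000319), and the granule protein Ngp likewise stood at 18.9 and 24.2 CPM (at least 198-fold higher, adjusted p = 0.00670). No gene of the primary granules, which are made in marrow precursors, passed the count filter. Among the members that did not pass, Ly6g stood at 96.7 and 229.9 CPM untreated and 201 and 245 CPM after DSS (0.45 ± 0.43). Neither did Cd177 pass (84.9 and 71.5 CPM untreated, 89.8 and 85.4 after DSS). Other members that rose were the C-type lectin Clec4d (5.06 ± 0.38), and of the granules the chitinase-like protein Chil1 (6.18 ± 0.49).

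Genes of recruited monocytes and activated macrophages rose in 11 of 16, whereas those of resident macrophages did not rise. Chil3, a chitinase-like lectin, stood at 0.319 and 0 CPM untreated and 53.7 and 68.6 CPM after DSS (log2 fold change 8.602 ± 0.77, adjusted p = 0.000234), the Fc receptor Fcgr3 at 7.42 and 6.10 and then 20.6 and 24.3 CPM (log2 fold change 1.73 ± 0.18, adjusted p = 0.000468) and Cd14 at 38.2 and 41.8 and then 131 and 70.8 CPM (log2 fold change 1.33 ± 0.25, adjusted p = 0.00500). Of 14 resident macrophage genes 0 rose (1 with WT untreated replicate 1 left out and 1 with WT DSS replicate 1 left out) and 2, Lyve1 and Folr2, fell (-1.38 ± 0.25 and -2.28 ± 0.51). C1qa and Adgre1 did not pass (0.55 ± 0.31 and -0.53 ± 0.29). The mast cell gene Cma1 fell from 3.59 and 3.89 to 0.290 and 0.366 CPM (log2 fold change -3.47 ± 0.40, adjusted p = 0.000669), while Hdc, which makes histamine in mast cells and in neutrophils, rose from 0.160 and 0.268 to 50.7 and 16.3 CPM (log2 fold change 7.19 ± 0.78, adjusted p = 0.000534). Of 8 eosinophil genes listed only 2 passed the count filter. Il5ra, an eosinophil receptor chain, rose from 0.0798 and 0.335 to 27.8 and 14.7 CPM (log2 fold change 6.54 ± 0.66, adjusted p = 0.000380), but the eosinophil lectin Siglecf did not pass, at 0.958 and 1.07 CPM and then 0.483 and 0.458 CPM. Leukocyte adhesion genes rose in 8 of 13, among them Icam1 (2.46 ± 0.31), Selp (4.42 ± 0.68) and the integrin chain Itgb2 (2.37 ± 0.37). Also higher was the mast cell protease Mcpt2 (9.03-fold higher (counting interval 2.70 to 47.3)). Of 10 dendritic cell genes 1 rose, the cytokine receptor Flt3 (1.87 ± 0.61), and 2 fell, the lectin Cd209a (12.8-fold lower (counting interval 3.27 to 110.1)) and the plasmacytoid cell lectin Siglech (9.05-fold lower (counting interval 2.85 to 46.0)). The adhesion list also held the integrin chain Itgam (2.70 ± 0.36) upward and the surface sialomucin Cd34 (-1.02 ± 0.25) downward. Mcpt2, Flt3, Cd209a, Siglech and Cd34 did not pass without WT untreated replicate 1 (adjusted p = 0.0746, 0.0957, 0.0544, 0.0628 and 0.0609). Mcpt2, Flt3 and Siglech did not pass without WT untreated replicate 2 (adjusted p = 0.0720, 0.146 and 0.0923). Folr2, Mcpt2, Flt3, Cd209a, Siglech and Cd34 did not pass without WT DSS replicate 1 (adjusted p = 0.0650, 0.105, 0.0936, 0.0777, 0.0960 and 0.0871). Folr2, Mcpt2, Flt3, Cd209a and Siglech did not pass without WT DSS replicate 2 (adjusted p = 0.0591, 0.0609, 0.155, 0.0843 and 0.152). Adgre1 passed as lower without WT untreated replicate 2 (adjusted p = 0.0167). C1qa passed as higher without WT DSS replicate 1 (adjusted p = 0.0353). Cd14 stood at a log2 fold change of 0.82 without WT DSS replicate 1.

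Lymphocyte genes were counted by lineage, and B cell genes differed between the mice. The lineages were not tested against each other, and the median of the T cell list was 1.81. Of 12 B cell genes 0 passed, although the list's median was 1.99, and 5 rose when the filter on low counts was dropped. Ms4a1, a B cell surface gene, stood at 0.479 and 19.5 CPM untreated and 40.6 and 10.8 CPM after DSS (log2 fold change 1.34 ± 1.40, adjusted p = 0.479). Untreated replicate 1 was below untreated replicate 2 for all 12 genes. Jchain, which joins IgA dimers in antibody-secreting cells, fell from 188 and 205 to 7.05 and 35.8 CPM (log2 fold change -3.19 ± 0.81, adjusted p = 0.0175). Of 123 antigen receptor gene segments tested, 47 fell and 1 rose, beside 18.8% lower and 17.2% higher over all genes tested. The class was defined to hold T cell receptor as well as antibody segments. Pigr, which carries IgA across the epithelium, fell from 2871 and 2752 to 1618 and 1583 CPM (log2 fold change -0.81 ± 0.15, adjusted p = 0.00511). Of 13 T cell genes 3 rose, namely Foxp3, the regulatory T cell factor (30.9-fold higher (counting interval 8.11 to 263), adjusted p = 0.0111), Ctla4 (log2 fold change 3.65 ± 0.62, adjusted p = 0.00354) and Icos (log2 fold change 2.65 ± 0.47, adjusted p = 0.00403). The T cell count was 9 when only the 4 WT libraries were fitted, 8 with no filter on low counts and 5 with antigen receptor, mitochondrial and ribosomal RNA-like genes left out. Cd3e did not pass (1.97 ± 0.91). Gzmb, a granzyme, went from 0.160 and 0 to 3.96 and 6.50 CPM. Of 7 plasma cell and IgA transport genes 1 rose, the plasma cell factor Prdm1 (2.04 ± 0.27), and 3 fell, the syndecan Sdc1 (-0.69 ± 0.12) being the third. The cytotoxic gene Gzma also rose (31.6-fold higher (counting interval 8.29 to 268)). The B cell genes with the highest mean, Bank1 and Cr2, stood at 2.47 and 13.4 and 0.399 and 24.7 CPM in the untreated pairs and did not pass (2.77 ± 1.24 and 1.43 ± 1.49). Foxp3 did not pass without WT untreated replicate 2 (adjusted p = 0.0567). Jchain did not pass without WT DSS replicate 1 (adjusted p = 0.0748). Gzmb had no counts in the other untreated mouse without WT untreated replicate 1. Gzma had no counts in the other untreated mouse without WT untreated replicate 2. Jchain stood at a log2 fold change of -4.80 without WT DSS replicate 2.

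Chemokines that attract neutrophils were among the steepest rises. Cxcl2 had 3 counts over both untreated mice and stood at 53.9 and 49.7 CPM after DSS, 473-fold higher (counting interval 162 to 2298), adjusted p = 5.27e-05. Cxcl5, made by epithelium and other cells, stood at 1.04 and 3.89 CPM untreated and 141 and 204 CPM after DSS (log2 fold change 6.08 ± 0.48, adjusted p = 0.000168). Cxcl3 had no counts untreated and stood at 25.3 and 15.8 CPM after DSS (at least 187-fold higher, adjusted p = 0.00140), as did Csf3, the granulocyte growth factor, at 3.96 and 9.61 CPM (at least 62.8-fold higher, adjusted p = 0.00133). Of 9 such genes listed 6 passed the count filter and 5 of these rose, Csf1 being the one that did not pass (0.61 ± 0.27). Genes without untreated counts, such as Cxcl3 and Csf3, could not pass that filter through the untreated WT libraries, so this share favours rises. Of 9 other CXC chemokines 6 rose (3 with WT DSS replicate 2 left out). Cxcl9, a lymphocyte attractant, went from 0.160 and 0.939 to 22.8 and 30.9 CPM (log2 fold change 5.51 ± 0.53, adjusted p = 0.000319) and Cxcl10 from 0.639 and 2.41 to 21.6 and 21.8 CPM (log2 fold change 3.78 ± 0.44, adjusted p = 0.000759). Also higher were the chemokine Cxcl14 (1.51 ± 0.33) and the CXCR3 ligand gene Cxcl11 (2.72 ± 0.60). Cxcl11 is annotated as a polymorphic pseudogene, and 41.7% of its exon bases overlap exons of other genes. It had 4 and 2 counts untreated and 19 and 13 after DSS. CC chemokines were mixed, with 5 of 15 higher (3 with WT DSS replicate 2 left out) and 2 lower. Ccl3, an attractant of monocytes and lymphocytes, had 10.4 and 2.01 CPM after DSS and Ccl4 16.4 and 2.47 CPM, both higher in replicate 1. The others that rose were the monocyte attractant Ccl2 (3.45 ± 0.68) and the monocyte attractant Ccl7 (2.97 ± 0.66). Ccl6 fell from 153 and 158 to 22.98 and 23.4 CPM (log2 fold change -2.75 ± 0.11, adjusted p = 1.00e-05) and Ccl28, which draws IgA plasma cells, from 184 and 184 to 119.5 and 93.3 CPM (log2 fold change -0.79 ± 0.15, adjusted p = 0.00533). Cxcl11 did not pass without WT untreated replicate 2 (adjusted p = 0.0570). Cxcl11 did not pass without WT DSS replicate 1 (adjusted p = 0.0635). Cxcl14 and Ccl7 did not pass without WT DSS replicate 2 (adjusted p = 0.0698 and 0.0581). Csf1 passed as higher without WT untreated replicate 1 (adjusted p = 0.0210).

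Interleukin 1 and interleukin 6 family genes rose. Of 14 interleukin 1 family genes 10 rose and 1, Il18, fell (log2 fold change -0.91 ± 0.22, adjusted p = 0.0150). Il1b stood at 1.12 and 2.48 CPM untreated and 151 and 48.7 CPM after DSS (log2 fold change 5.75 ± 0.69, adjusted p = 0.000855), and Il1rl1, the interleukin 33 receptor, at 4.39 and 5.4997 and then 42.1 and 189 CPM (log2 fold change 4.54 ± 0.66, adjusted p = 0.00187). Both groups stayed apart, but Il1b was about 3 times higher in DSS replicate 1 and Il1rl1 over 4 times higher in replicate 2. Of 14 genes of the interleukin 6 family and its Stat3 feedback 12 rose. Il6 had 1 count untreated and stood at 2.41 and 12.4 CPM after DSS (206-fold higher (counting interval 36.5 to 8199), adjusted p = 0.00475), Il11 at 0.639 and 0.335 and then 8.69 and 35.1 CPM (log2 fold change 5.49 ± 0.75, adjusted p = 0.00143) and Osm at 0 and 0.268 and then 13.4 and 6.13 CPM (log2 fold change 5.98 ± 0.82, adjusted p = 0.00146). Socs3, the feedback inhibitor, went from 5.75 and 22.9 to 151 and 157 CPM (log2 fold change 3.40 ± 0.48, adjusted p = 0.00159), Pim1 from 11.6 and 11.7 to 60.1 and 49.5 CPM (log2 fold change 2.24 ± 0.17, adjusted p = 0.000145) and the receptor Osmr from 16.6 and 13.8 to 53.5 and 73.8 CPM (log2 fold change 2.07 ± 0.24, adjusted p = 0.000689). Further members that rose were the interleukin 18 receptor chain Il18rap (4.22 ± 0.32) and the interleukin 36 cytokine Il1f9 (78.2-fold higher (counting interval 26.3 to 383)), and, of the interleukin 6 family, the cytokine Lif (1.65 ± 0.20). Of 18 type 3 cytokine and receptor genes listed only 7 passed the count filter. Of these 7, 4 rose, namely the interleukin 17 receptor chain Il17ra (1.22 ± 0.19), the interleukin 10 receptor chain Il10ra (2.33 ± 0.40), the cytokine Il10 (3.53 ± 0.66) and the receptor chain Il20rb (1.36 ± 0.31), and 1 fell, the soluble interleukin 22 antagonist Il22ra2 (-3.19 ± 1.09). Stat3 did not pass without WT untreated replicate 1 (adjusted p = 0.0506). Il18, Il20rb and Il22ra2 did not pass without WT untreated replicate 2 (adjusted p = 0.0616, 0.0652 and 0.327). Il18, Stat3 and Il22ra2 did not pass without WT DSS replicate 1 (adjusted p = 0.0511, 0.0720 and 0.126). Il18, Stat3, Il20rb and Il22ra2 did not pass without WT DSS replicate 2 (adjusted p = 0.0900, 0.0950, 0.0859 and 0.211). Osm had no counts in the other untreated mouse without WT untreated replicate 2. Il1f9 had no counts in the other untreated mouse without WT untreated replicate 2.

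NF-κB is the transcription factor family released when its inhibitors are degraded, and it induces many of the cytokines above. Of 16 subunits, inhibitors and regulators 11 rose (median 0.72) and 0 fell. Rel stood at 18.6 and 24.1 CPM untreated and 97.7 and 93.0 CPM after DSS (log2 fold change 2.16 ± 0.19, adjusted p = 0.000233), Nfkbia, the inhibitor IκBα, at 36.3 and 57.1 and then 111 and 125 CPM (log2 fold change 1.34 ± 0.23, adjusted p = 0.00339) and Rela at 28.6 and 30.7 and then 47.8 and 43.8 CPM (log2 fold change 0.63 ± 0.12, adjusted p = 0.00542). For each of these every DSS value lay above both untreated values. Tnf went from 0.240 and 1.48 to 11.49 and 8.79 CPM (log2 fold change 3.49 ± 0.59, adjusted p = 0.00325) and its target Tnfaip2 from 4.39 and 3.69 to 59.9 and 49.3 CPM (log2 fold change 3.76 ± 0.18, adjusted p = 1.81e-05). Gm16685, from general knowledge the mouse gene of the long noncoding RNA NAIL for which the series is named, stood at 0.240 and 1.34 CPM untreated and 5.504 and 11.54 CPM after DSS (log2 fold change 3.36 ± 0.63, adjusted p = 0.00502), and both DSS mice were above both untreated mice. Ppm1d, a phosphatase that acts on p38, and Mapk14, which encodes p38α, did not pass, with 95% intervals of -0.18 to 0.60 and -0.10 to 0.46. Of 12 p38 pathway genes 4 rose (2 with WT untreated replicate 1 left out, 2 with WT DSS replicate 1 left out and 2 with WT DSS replicate 2 left out) and 1 fell (0 with WT untreated replicate 1 left out, 0 with WT DSS replicate 1 left out and 0 with WT DSS replicate 2 left out). The phosphatase Dusp1 went from 13.3 and 27.7 to 89.6 and 63.0 CPM (log2 fold change 1.89 ± 0.36, adjusted p = 0.00542). Others that rose were the kinase Ikbkb (0.93 ± 0.11), the subunit Nfkb1 (0.74 ± 0.12) and the inhibitor Nfkbie (2.20 ± 0.35) of NF-κB, the TNF receptor Tnfrsf1b (2.12 ± 0.17) and the TNF receptor Tnfrsf1a (0.97 ± 0.15) of the 6 of 14 TNF genes, and the p38 target kinase Mapkapk2 (0.59 ± 0.11), the p38 kinase Mapk11 (2.09 ± 0.52) and the p38 kinase Mapk12 (1.13 ± 0.35) of the p38 pathway, in which the p38 target kinase Mapkapk3 (-0.36 ± 0.12) fell. Of 18 immediate early genes 6 rose, among them the early response gene Ier3 (2.61 ± 0.28), the nuclear receptor Nr4a1 (1.68 ± 0.25) and the AP-1 subunit Fosl1 (2.29 ± 0.48), and 1 fell, the transcription factor Klf6 (-0.85 ± 0.23), the falling count being 3 with WT untreated replicate 1 left out, 0 with WT untreated replicate 2 left out, 2 with WT DSS replicate 1 left out and 0 with WT DSS replicate 2 left out. Mapk11, Mapk12 and Mapkapk3 did not pass without WT untreated replicate 1 (adjusted p = 0.0659, 0.0675 and 0.101). Mapk12, Mapkapk3 and Klf6 did not pass without WT untreated replicate 2 (adjusted p = 0.133, 0.172 and 0.120). Mapk11, Mapk12 and Mapkapk3 did not pass without WT DSS replicate 1 (adjusted p = 0.0608, 0.0711 and 0.0921). Mapk11, Mapk12, Mapkapk3 and Klf6 did not pass without WT DSS replicate 2 (adjusted p = 0.0640, 0.193, 0.227 and 0.136). Tnf stood at a log2 fold change of 5.37 without WT untreated replicate 2. Gm16685 stood at a log2 fold change of 5.13 without WT untreated replicate 2.

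Interferon-inducible genes were counted by class. Of 17 genes of the GTPase list 16 rose (median 2.28). Its GTPases act against intracellular pathogens and are induced by interferon gamma, and the list also holds Irf1 and Socs1, which are not GTPases. Gbp5 stood at 4.23 and 3.22 CPM untreated and 49.0 and 73.7 CPM after DSS (log2 fold change 4.05 ± 0.32, adjusted p = 0.000167) and Iigp1 at 6.23 and 6.30 and then 60.5 and 162 CPM (log2 fold change 4.15 ± 0.58, adjusted p = 0.00155). All 17 were higher in DSS replicate 2 than in replicate 1. The exception was Irf1, at 127 and 193 CPM and then 155 and 198 CPM (log2 fold change 0.14 ± 0.27, adjusted p = 0.711). Of 22 antiviral genes of the type I interferon response 4 rose, beside 17.2% of all genes tested (median 0.48), and 1 with WT untreated replicate 1 left out, 7 with WT untreated replicate 2 left out, 2 with WT DSS replicate 1 left out and 2 with WT DSS replicate 2 left out. By DESeq2 the antiviral count was 7. Isg15, a ubiquitin-like modifier, was at 3.51 and 5.57 CPM untreated and 5.79 and 5.59 CPM after DSS (log2 fold change 0.32 ± 0.41, adjusted p = 0.569), and Ifit1 at 6.39 and 17.2 and then 8.79 and 12.2 CPM (log2 fold change -0.18 ± 0.55, adjusted p = 0.823). These groups overlapped or nearly so. Whether the 2 classes differ was not tested. Antigen presentation genes were intermediate: 7 of 14 class I genes rose, with the peptide transporter Tap1 at 2.43 ± 0.24 and the class I transactivator Nlrc5 at 3.30 ± 0.60. H2-K1 and B2m did not pass (0.28 ± 0.18 and 0.32 ± 0.26), although H2-D1 rose (1.15 ± 0.16). Class II genes rose in 5 of 10 (2 with WT untreated replicate 1 left out and 1 with WT DSS replicate 1 left out), with Cd74 at 62.7 and 105 CPM untreated and 278 and 189.6 after DSS (log2 fold change 1.47 ± 0.40, adjusted p = 0.0218). Other rises were the feedback inhibitor Socs1 (4.08 ± 0.36) and the guanylate-binding protein Gbp4 (3.66 ± 0.40) of the GTPase list, the interferon-induced gene Xaf1 (1.18 ± 0.21), the antiviral gene Ifit3b (1.57 ± 0.43), the antiviral enzyme Oas2 (1.38 ± 0.44) and the deconjugating enzyme Usp18 (1.69 ± 0.57) of the antiviral genes, the nonclassical class I gene H2-Q4 (2.27 ± 0.28) and the immunoproteasome subunit Psmb9 (1.55 ± 0.22) of class I and the peptide-loading chain H2-DMb1 (1.78 ± 0.24), the class II chain H2-Ab1 (1.24 ± 0.29) and the peptide-loading chain H2-DMa (1.12 ± 0.29) of class II. Complement genes rose in 9 of 15 (5 with WT untreated replicate 2 left out and 3 with WT DSS replicate 2 left out), with the C5a receptor C5ar1 (2.17 ± 0.30), the complement protease C1ra (1.44 ± 0.26), the complement component C4b (1.99 ± 0.39) and the complement factor properdin Cfp (1.01 ± 0.22), and 1, Cfd, fell. Cd74, Ifit3b, Oas2, Usp18 and H2-DMa did not pass without WT untreated replicate 1 (adjusted p = 0.0850, 0.0743, 0.137, 0.172 and 0.0693). Cfd did not pass without WT untreated replicate 2 (adjusted p = 0.206). Cd74, Ifit3b, Oas2, H2-Ab1, H2-DMa and Cfd did not pass without WT DSS replicate 1 (adjusted p = 0.112, 0.117, 0.146, 0.0815, 0.108 and 0.0759). Oas2, Usp18, Cfp and Cfd did not pass without WT DSS replicate 2 (adjusted p = 0.0908, 0.329, 0.0777 and 0.120). Usp18 stood at a log2 fold change of 2.59 without WT untreated replicate 2.

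Matrix-degrading enzymes and collagens both rose in part. Of 24 metalloproteinases and inhibitors 15 rose and 2 fell (median 2.73), against 11 and 2 of 20 collagens (median 0.85). Mmp9, the gelatinase of neutrophils, stood at 1.04 and 0.939 CPM untreated and 24.5 and 21.4 CPM after DSS (log2 fold change 4.53 ± 0.23, adjusted p = 2.31e-05), Adam8 at 1.68 and 1.27 and then 52.4 and 38.5 CPM (log2 fold change 4.94 ± 0.40, adjusted p = 0.000179) and Timp1, an inhibitor of these enzymes, at 1.597 and 0.604 and then 10.8 and 14.8 CPM (log2 fold change 3.56 ± 0.44, adjusted p = 0.000920). The 2 DSS mice were close for these 3 genes. Basement membrane collagens rose, Col18a1 from 24.5 and 17.6 to 129.7 and 230.4 CPM (log2 fold change 3.10 ± 0.32, adjusted p = 0.000406) and Col4a2 from 103 and 56.1 to 218 and 352 CPM (log2 fold change 1.84 ± 0.31, adjusted p = 0.00326), as did the fibrillar Col1a1 (log2 fold change 1.34 ± 0.24, adjusted p = 0.00410). The collagens that fell were Col14a1, from 71.5 and 54.2 to 9.66 and 13.1 CPM (log2 fold change -2.46 ± 0.19, adjusted p = 0.000166), and Col8a1 (log2 fold change -1.19 ± 0.39, adjusted p = 0.0426). The collagen count was 7 with WT untreated replicate 2 left out and 5 with WT DSS replicate 2 left out. Thbs1, a matrix glycoprotein, went from 68.1 and 51.4 to 383 and 384 CPM (log2 fold change 2.68 ± 0.15, adjusted p = 4.06e-05), while the small proteoglycan Lum fell (log2 fold change -1.55 ± 0.22, adjusted p = 0.00174). Protease inhibitors of the serpin family rose in 7 of 13: Serpina3n went from 6.55 and 12.1 to 213 and 458 CPM (log2 fold change 5.16 ± 0.52, adjusted p = 0.000377). Metalloproteinase genes that fell were the aggrecanase-type protease Adamts15 (-0.49 ± 0.12) and the inhibitor Timp4 (-1.25 ± 0.33). Other collagens that rose were the fibrillar collagen Col5a3 (2.32 ± 0.34) and the anchoring fibril collagen Col7a1 (2.83 ± 0.48). Of 20 thrombospondins and matricellular genes 5 rose (9 with WT untreated replicate 1 left out and 8 with WT DSS replicate 1 left out), among them the secreted protein osteopontin Spp1 (4.55 ± 0.84) and the collagen cross-linker Lox (2.69 ± 0.53), and 4 fell (2 with WT DSS replicate 2 left out), among them the thrombospondin Thbs2 (-1.08 ± 0.21), the matricellular protein Postn (-1.31 ± 0.34) and the tenascin Tnxb (-0.64 ± 0.18). Further serpins were the serpin Serpina3i (58.0-fold higher (counting interval 15.6 to 486)) and the serpin Serpina3f (5.53 ± 0.83) upward and the serpin Serpinb1a (-0.85 ± 0.25) and the serpin Serpinb5 (-0.56 ± 0.18) downward. Col8a1, Adamts15, Timp4 and Tnxb did not pass without WT untreated replicate 1 (adjusted p = 0.298, 0.0746, 0.0920 and 0.124). Serpinb1a and Serpinb5 did not pass without WT untreated replicate 2 (adjusted p = 0.178 and 0.265). Col8a1, Postn, Serpinb1a and Serpinb5 did not pass without WT DSS replicate 1 (adjusted p = 0.206, 0.0756, 0.127 and 0.0778). Adamts15, Timp4, Postn, Tnxb, Serpinb1a and Serpinb5 did not pass without WT DSS replicate 2 (adjusted p = 0.105, 0.121, 0.0979, 0.162, 0.113 and 0.197). Postn stood at a log2 fold change of -0.49 without WT untreated replicate 1. Lox stood at a log2 fold change of 1.59 without WT DSS replicate 2.

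Smooth muscle genes fell in 15 of 19, and 0 rose (1 with WT untreated replicate 1 left out; median -1.65). Myh11 stood at 2085 and 1242 CPM untreated and 470.0 and 362 CPM after DSS (log2 fold change -1.999 ± 0.25, adjusted p = 0.000928), Actg2, an enteric smooth muscle actin, at 916 and 353 and then 85.6 and 70.0 CPM (log2 fold change -3.03 ± 0.39, adjusted p = 0.00118) and Des, which encodes desmin, at 894 and 414 and then 153 and 107 CPM (log2 fold change -2.33 ± 0.34, adjusted p = 0.00182). Untreated replicate 1 was the highest of the 4 mice for each, and both DSS mice lay below both untreated mice. Enteric neuron genes, whose cells lie within the same muscle layers, mostly did not pass: of 20, 2 rose, 1 fell and the median was 0.0693. The neuronal gene Uchl1 stood at 5.99 and 8.25 CPM untreated and 6.86 and 7.97 CPM after DSS (log2 fold change 0.0552 ± 0.24, adjusted p = 0.872). Kit and Ano1, which mark pacemaker cells among others, fell (-1.11 ± 0.15 and -1.82 ± 0.30), and the glial filament Gfap rose (log2 fold change 1.97 ± 0.36, adjusted p = 0.00475). Endothelial genes were split, 7 of 16 higher (3 with WT untreated replicate 2 left out and 1 with WT DSS replicate 2 left out) and 3 lower. Among growth signals, Grem1, a bone morphogenetic protein antagonist, rose from 99.2 and 53.1 to 219 and 301 CPM (log2 fold change 1.77 ± 0.31, adjusted p = 0.00386), Inhba, an activin chain, from 6.87 and 1.68 to 26.7 and 52.7 CPM (log2 fold change 3.24 ± 0.59, adjusted p = 0.00464) and Ptgs2, the inducible cyclooxygenase, from 8.30 and 7.38 to 61.9 and 139 CPM (log2 fold change 3.68 ± 0.40, adjusted p = 0.000557), while Hpgd, which inactivates prostaglandins, fell from 134 and 137 to 34.4 and 42.9 CPM (log2 fold change -1.81 ± 0.16, adjusted p = 0.000233). Also lower were the myosin light chain Myl9 (-2.15 ± 0.24), the actin-binding protein Tagln (-2.23 ± 0.28) and the tropomyosin Tpm2 (-1.31 ± 0.17) of muscle. Of the neuron genes the receptor Ret (1.53 ± 0.23) and Tac1, named above with the hormone cell genes, rose and the neurofilament Nefl (-0.84 ± 0.26) fell. Endothelial genes that rose included the VEGF receptor Flt1 (1.798 ± 0.38), the endothelial secreted protein Egfl7 (1.35 ± 0.29), the endothelial diaphragm protein Plvap (1.67 ± 0.40) and the von Willebrand factor gene Vwf (1.26 ± 0.32), and those that fell were the VEGF receptor Flt4 (-0.998 ± 0.27) and the angiopoietin receptor Tek (-0.72 ± 0.23) (1 with WT untreated replicate 1 left out and 1 with WT DSS replicate 1 left out fell). Of 23 Wnt genes, beside 17.2% higher and 18.8% lower over all genes tested, 4 rose (7 with WT untreated replicate 1 left out, 2 with WT untreated replicate 2 left out and 2 with WT DSS replicate 2 left out), the Wnt co-receptor Lrp5 (0.79 ± 0.14), the Wnt receptor Fzd1 (0.55 ± 0.13) and the Wnt antagonist Sfrp1 (0.73 ± 0.24), and 3 fell (1 with WT DSS replicate 1 left out), among them the Wnt co-receptor Lrp6 (-0.53 ± 0.11) and the Wnt ligand Wnt2b (-1.25 ± 0.32). Of 22 BMP, activin and TGF-beta genes 7 rose, among them the antagonist chordin Chrd (2.26 ± 0.34), the activin chain Inhbb (4.61 ± 0.71) and the growth factor Tgfb1 (2.02 ± 0.32), and 6 fell (3 with WT untreated replicate 1 left out and 2 with WT DSS replicate 2 left out), among them the receptor Bmpr1a (-0.70 ± 0.13), the ligand Bmp2 (-1.002 ± 0.21), the target Id3 (-0.63 ± 0.17) and the inhibitory Smad Smad6 (-0.99 ± 0.30). Of 17 prostaglandin genes 4 rose and 2 fell, with the leukotriene synthesis protein Alox5ap (2.80 ± 0.28), the prostaglandin E synthase Ptges (2.94 ± 0.51) and the prostaglandin receptor Ptger2 (1.81 ± 0.55) upward and the leukotriene enzyme Lta4h (-0.72 ± 0.13) downward. Nefl, Flt4, Tek, Wnt2b, Id3 and Smad6 did not pass without WT untreated replicate 1 (adjusted p = 0.0647, 0.0794, 0.266, 0.0867, 0.0946 and 0.161). Nefl, Vwf, Flt4, Fzd1, Sfrp1 and Ptger2 did not pass without WT untreated replicate 2 (adjusted p = 0.160, 0.0521, 0.0705, 0.0589, 0.197 and 0.148). Nefl, Flt4, Tek, Fzd1, Lrp6, Wnt2b and Ptger2 did not pass without WT DSS replicate 1 (adjusted p = 0.136, 0.134, 0.155, 0.0656, 0.0642, 0.0829 and 0.0657). Nefl, Flt1, Plvap, Vwf, Tek, Fzd1, Sfrp1, Wnt2b, Id3, Smad6 and Ptger2 did not pass without WT DSS replicate 2 (adjusted p = 0.129, 0.0590, 0.0716, 0.0980, 0.134, 0.0610, 0.316, 0.0856, 0.137, 0.186 and 0.161).

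Cell cycle genes did not rise as a group at this time point. Of 24 mitosis genes 0 rose and 11 fell (7 with WT untreated replicate 2 left out, 7 with WT DSS replicate 1 left out and 7 with WT DSS replicate 2 left out), with a median of -0.44. Mki67, the standard proliferation marker, stood at 572 and 575 CPM untreated and 374 and 351 CPM after DSS (log2 fold change -0.66 ± 0.12, adjusted p = 0.00420), and Top2a at 249 and 289 and then 171 and 157 CPM (log2 fold change -0.72 ± 0.12, adjusted p = 0.00318). The 2 DSS mice lay below the 2 untreated mice for both genes, by less than 2-fold. Of 24 genes of DNA replication 3 rose and 5 fell, among them Cdt1, the licensing factor, upward (log2 fold change 1.25 ± 0.19, adjusted p = 0.00214) and Pola1 downward (log2 fold change -0.62 ± 0.14, adjusted p = 0.00984). The falling count was 0 with WT untreated replicate 2 left out, 3 with WT DSS replicate 1 left out and 0 with WT DSS replicate 2 left out, and the rising count 5 with WT untreated replicate 2 left out. Further mitosis genes that fell were the kinetochore protein Cenpf (-0.95 ± 0.13), the spindle protein Nusap1 (-1.21 ± 0.17) and the kinesin Kif11 (-0.75 ± 0.12). DNA replication genes that rose were the ribonucleotide reductase subunit Rrm2 (1.12 ± 0.22) and the cyclin Ccne1 (1.03 ± 0.27), and others that fell were the replication clamp Pcna (-0.80 ± 0.18) and the thymidylate synthase Tyms (-0.50 ± 0.12). Of 22 unfolded protein response genes 0 rose (2 with WT untreated replicate 2 left out) and 6 fell (10 with WT untreated replicate 1 left out and 1 with WT DSS replicate 2 left out), with the disulfide isomerase Pdia6 (-0.80 ± 0.13), the disulfide isomerase Pdia4 (-0.87 ± 0.17) and the chaperone Hsp90b1 (-0.85 ± 0.17). Genes of tissues that could adhere to a dissected colon were counted as well: 3 of 10 adipocyte genes fell (5 with WT untreated replicate 1 left out, 1 with WT untreated replicate 2 left out, 0 with WT DSS replicate 1 left out and 0 with WT DSS replicate 2 left out), 2 of 6 skeletal muscle genes rose, the sarcomere protein Myot (at least 207-fold higher) and the troponin Tnni2 (3.20 ± 0.62), 3 fell, the muscle protein Smpx (93.1-fold lower (counting interval 25.5 to 773)), the muscle creatine kinase Ckm (-3.27 ± 0.50) and the skeletal myosin Myh2 (29.5-fold lower (counting interval 7.88 to 248)), and of 4 red blood cell genes 0 passed (1 with WT DSS replicate 2 left out, lower), the globin Hba-a1 (-0.24 ± 0.39) and the globin Hbb-bs (-0.14 ± 0.37) having the highest mean. Ccne1 and Myh2 did not pass without WT untreated replicate 1 (adjusted p = 0.0728 and 0.173). Pola1, Pcna and Tyms did not pass without WT untreated replicate 2 (adjusted p = 0.0622, 0.0533 and 0.0816). Tyms and Myh2 did not pass without WT DSS replicate 1 (adjusted p = 0.0775 and 0.0860). Pola1, Ccne1, Pcna, Tyms, Pdia4, Hsp90b1 and Myh2 did not pass without WT DSS replicate 2 (adjusted p = 0.0618, 0.116, 0.0691, 0.0526, 0.0534, 0.0573 and 0.155). Hsp90b1 stood at a log2 fold change of -0.55 without WT untreated replicate 2.

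The 2 DSS mice differed several-fold in a few of the genes that rose. Across genes of at least 1 CPM, the median absolute log2 difference was 0.18 between the DSS mice and 0.22 between the untreated mice, so the typical gene did not differ more within the DSS pair. The 6 genes past the threshold and at a mean of at least 10 CPM that differed most between the DSS mice were all higher in replicate 2. Mmp13, a collagenase, stood at 3.27 and 2.88 CPM untreated and 34.0 and 337 CPM after DSS, Mmp10 at 1.52 and 0.872 and then 20.2 and 162 CPM and Mmp3 at 1.04 and 2.68 and then 26.5 and 161 CPM. Cemip, which breaks down hyaluronan, stood at 1.92 and 2.41 and then 53.9 and 279 CPM, and Dio2, which activates thyroid hormone, at 0.878 and 0.939 and then 20.0 and 148 CPM. Even the lower DSS mouse was therefore well above both untreated mice for these 5 genes. For Pi15, a secreted peptidase inhibitor, the lower DSS value was close to the untreated ones (8.94 and 7.24 CPM untreated, 10.4 and 64.7 after DSS). The fitted rises carried large errors, at 5.91 ± 0.998, 6.26 ± 0.997, 5.62 ± 0.87, 6.25 ± 0.78, 6.51 ± 0.96 and 2.22 ± 0.68, with adjusted p from 0.000975 to 0.0345. Replicate 1 was the higher of the DSS mice for Il1a (27.6 and 8.97 CPM), Clec4e (35.4 and 15.5 CPM) and all 12 B cell genes, which were noticed after their values were seen. Pi15 did not pass without WT untreated replicate 1 (adjusted p = 0.0877). Pi15 did not pass without WT untreated replicate 2 (adjusted p = 0.132). Pi15 did not pass without WT DSS replicate 2 (adjusted p = 0.453). Mmp13 stood at a log2 fold change of 3.46 without WT DSS replicate 2. Mmp10 stood at a log2 fold change of 4.08 without WT DSS replicate 2.

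**Figure D4:**
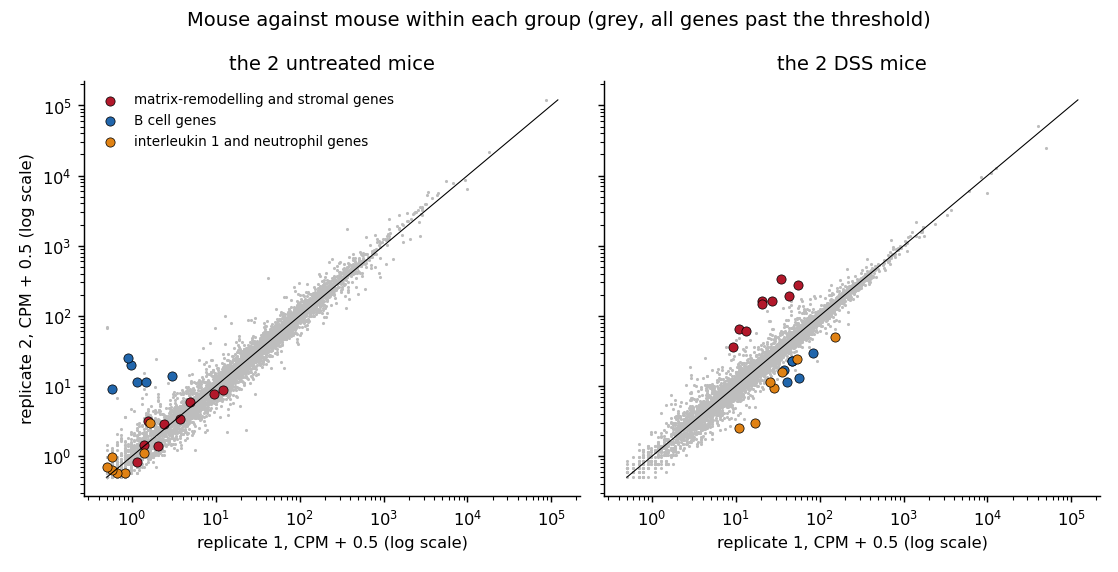
CPM plus 0.5 of replicate 2 (vertical log axis) against replicate 1 (horizontal log axis) in the untreated mice (left) and the DSS mice (right), with every gene past the threshold and a mean of at least 1 CPM in grey and the diagonal as a line. Red genes, among them Mmp13 (34.0 and 337 CPM with DSS), lie far above the diagonal in the DSS mice, orange genes, among them Il1b (151 and 48.7 CPM), lie below it there, and blue B cell genes, which did not pass the test, lie above it in the untreated mice. The coloured genes beyond the 6 named by rule were chosen after their values were seen.

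The WT response was set beside the response of ΔNFκB mice, which carry an altered NAIL locus and were compared as 2 untreated males and 2 DSS females. Sex and DSS cannot be told apart in that comparison. In ΔNFκB mice 2832 genes rose (16.2%) and 3367 fell (19.2%). Of the WT genes that rose, 1133 also rose in ΔNFκB mice, 37.5% of the WT and 40.0% of the ΔNFκB list. Of those that fell, 1463 also fell, 44.4% and 43.5% of the lists. The difference between the 2 responses was tested directly and passed for 3102 genes (17.7%), among them 733 of the genes that rose in WT mice and 949 of those that fell. With the ΔNFκB minus WT difference in log2 fold change as the measure, all 24 mitosis genes differed, and 23 of them rose in ΔNFκB mice against 0 in WT mice. Mki67 fell by 0.66 on the log2 scale in WT mice and stood at 0.98 in ΔNFκB mice (difference 1.64 ± 0.17, adjusted p = 0.00421). Of 20 collagens 16 differed, with medians of 0.85 in WT and -1.03 in ΔNFκB mice, and of 12 goblet cell products 11 differed, with medians of -2.35 and -0.76. Of 20 enteric neuron genes 14 differed (medians 0.0693 and -2.17), and of 22 antiviral genes 11 (medians 0.48 and 2.15). Over all genes tested 17.7% differed, and no test compared the lists with each other. Responses differed for 11 of 38 xenobiotic enzymes, 2 of 16 NF-κB pathway genes and 1 of 17 crypt base genes. Of 6 neutrophil attractants 0 differed. Among the attractants 1 gene passed by DESeq2, and 1 had an unadjusted p under 0.05 by edgeR. The number of genes whose response differed was 1595 with WT untreated replicate 2 left out, 1593 with WT DSS replicate 1 left out, 909 with WT DSS replicate 2 left out, 923 with ΔNFκB untreated replicate 1 left out, 1603 with ΔNFκB DSS replicate 1 left out and 512 with ΔNFκB DSS replicate 2 left out.

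**Figure D5:**
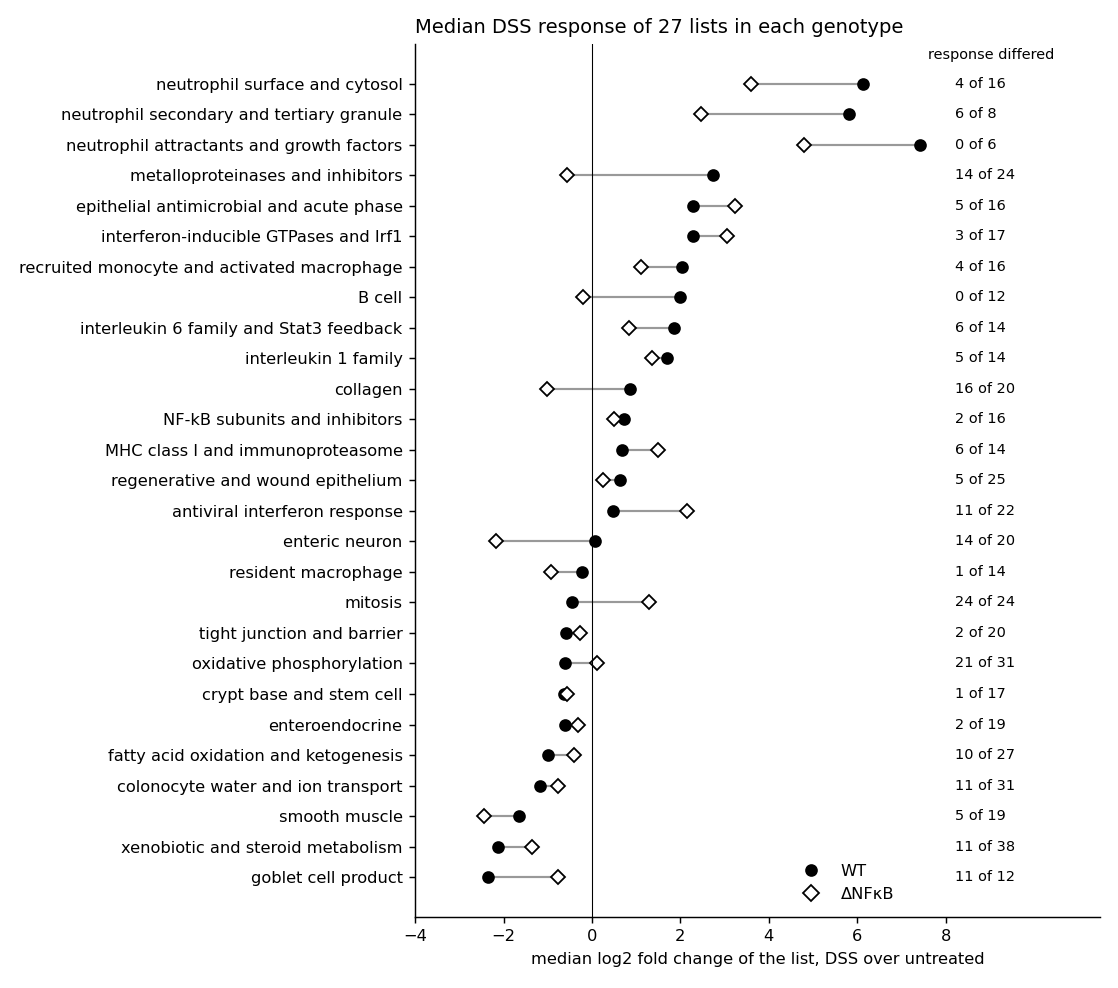
Median log2 fold change of DSS over untreated (horizontal axis) of 27 gene lists in WT mice (filled circles) and ΔNFκB mice (open diamonds), with the number of members whose response differed between genotypes at the right. The medians lie on opposite sides of 0 for metalloproteinases, B cell, enteric neuron and oxidative phosphorylation genes, for mitosis genes (-0.44 in WT, 1.29 in ΔNFκB mice) and collagens (0.85 and -1.03).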

How the data were processed

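Total RNA libraries of distal colon were sequenced in paired reads of 150 bases, with 2 mice a group. HISAT2 2.1, SAMtools 1.8, Subread 1.6.2, featureCounts and the build mm10 are named in the submitters' processing notes. Their order, and how strand and reads with several matches were handled, is not given in the sources used here. The authors deposited unnormalised counts per gene, called expected counts here because 18.8% of nonzero values were not whole. They were rounded, although whole counts had been planned for, and the lines of 115 symbols on more than 1 line were summed.

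The groups and the 66 gene lists were chosen with earlier results of these data known. edgeR 4.0.16 in R 4.3.3 fitted a mean for each of the 4 groups over all 8 libraries (4 residual degrees of freedom) after filterByExpr and TMM scaling. Its quasi-likelihood test gave p, adjusted by Benjamini-Hochberg over all 17522 genes tested. The labels name mice but no litters or batches, so p measures the spread between these mice, and with 2 against 2 an exact permutation test could not go below 0.333. Where a group held 3 counts or fewer, folds are given against a floor of 3 counts over the group or with a 95% counting interval. Both cover counting error only. In data simulated for this comparison, with 17522 genes and 200 changed ones per fold, 29% of 2-fold and 73% of 4-fold changes were recovered. The simulations also called 11 and 10 unchanged genes, beside 58 and 146 changed ones with the right sign. They changed far fewer genes than the 6315 that passed here, so recovery with as many changed genes was not tested.

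Genes were named by rule: the 12 largest gains and losses in mean CPM, the 8 smallest p in each direction, up to 4 members of each list in each direction with the smallest p (or 2 with the highest mean where fewer than 2 passed), the 6 that differed most between the DSS mice, and Gm16685, Ppm1d, Mapk14, Rela, Tnf, Il6, Il1b and the resistin-like genes. The largest gains and losses were taken only from genes past the threshold whose WT groups did not overlap. For those genes the call and the separation were therefore conditions of entry. Predicted genes, antigen receptor segments ribosomal RNA-like genes and small nuclear RNAs were left out of the rules over all genes. Results for some genes of the lists are not reported here. A further 60 genes were chosen after their values were seen: Abcb1a, Actg2, Adgre1, Agr2, Aqp8, Areg, Arg2, Ascl2, B2m, Bcas1, C1qa, Car4, Cd14, Cd177, Cd3e, Cdx2, Clca3a1, Clca4a, Cldn2, Clec4e, Col1a1, Csf1, Dclk1, Des, Epcam, Fcgr3, H2-K1, Hao2, Hbegf, Ido1, Ifit1, Iigp1, Il1a, Il1rl1, Irf1, Isg15, Krt14, Ly6g, Lypd8, Mki67, Ms4a1, Nfkbia, Ngp, Nlrc5, Nr3c2, Osm, Pla2g2a, Ppargc1a, S100a8, S100a9, Scnn1a, Slc16a1, Slc9a2, Socs3, Spdef, Spink4, Stat3, Sult1a1, Tgfa and Uchl1. Alternatives were RLE and upper quartile scaling, DESeq2 1.42.0, limma-voom (limma 3.58.1), other count filters, a fit of the WT libraries alone, a replicate block, leaving out antigen receptor, mitochondrial and ribosomal RNA-like genes, and leaving out each library. Resistin-like protein sequences were not analysed here.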

Additional observations from a re-analysis of the deposited data

Results flagged for a closer look

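The response to DSS differed between WT and ΔNFκB mice, by the direct test of genotype and DSS together (edgeR's quasi-likelihood test, adjusted over all genes tested), for 147 of the 368 genes named in the text, beside 3102 of all 17522 genes tested (17.7%). Most genes were named for a change in the same WT libraries that enter this test. Each value below is the log2 fold change in ΔNFκB mice minus that in WT mice, so a negative value means a lower response in ΔNFκB mice: for a gene that rose in WT mice a smaller rise or a fall, and for a gene that fell a larger fall. The adjusted p ran from 0.000397 to 0.0497. Group names below are broad headings and do not name the cell that made each RNA. In the ΔNFκB comparison the untreated pair was male and the DSS pair female, so sex and DSS cannot be told apart there, and no group held enough mice to test for outlying samples.

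Among epithelial genes that fell in WT mice, the log2 fold change was higher in ΔNFκB mice for Mptx1 (5.67), Lgr5 (5.29), Aqp8 (5.06), Nox1 (3.68), Ugt2b35 (3.005), Muc4 (2.88), Gstm3 (2.78), Clca1 (2.63), Gal3st2 (2.52), Spink4 (2.37), Klk1 (2.36), Agr2 (2.17), Zg16 (2.13) and Gcnt3 (1.97). Smaller differences of this sign were those of Muc2 (1.95), Tff3 (1.83), Fcgbp (1.72), Maob (1.66), Reg4 (1.53), Bcas1 (1.26), St3gal6 (1.23), Car2 (1.19), Atoh1 (1.14), Cldn15 (1.12), Hnf4a (1.12), Creb3l4 (1.09), Galnt7 (1.08) and Krt18 (0.95). Smaller differences of this sign were those of Cd24a (0.93), Slc5a8 (0.91), Gstm1 (0.87), Krt8 (0.85), Scnn1a (0.84) and Krt19 (0.79). A larger fall in ΔNFκB mice was found for the epithelial genes Car1 (-1.52) and Scg2 (-1.20). Of the epithelial genes that rose, Ly6a (1.84) had a larger rise in ΔNFκB mice. Among epithelial genes that rose in WT mice, the log2 fold change was lower in ΔNFκB mice for Ereg (-3.07), Krt23 (-3.01) and Nrg1 (-2.33). Spdef (1.05), which did not pass in WT mice, had a higher log2 fold change in ΔNFκB mice. Dclk1 (-1.62), which did not pass in WT mice, had a lower log2 fold change in ΔNFκB mice.

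Among metabolic and cell cycle genes that fell in WT mice, the log2 fold change was higher in ΔNFκB mice for Otc (3.69), Cps1 (3.29), Gatm (2.47), Top2a (1.81), Kif11 (1.73), Cenpf (1.71), Hsp90b1 (1.67), Mki67 (1.64), Nusap1 (1.58), Pdia4 (1.53), Pdia6 (1.48), Pcna (1.02), Tyms (0.94) and Acat1 (0.93). Smaller differences of this sign were those of Uqcrc2 (0.91), Ndufa9 (0.86) and Pola1 (0.77). Of the metabolic and cell cycle genes that rose, Rrm2 (1.199) had a larger rise in ΔNFκB mice. Among metabolic and cell cycle genes that rose in WT mice, the log2 fold change was lower in ΔNFκB mice for Slc7a2 (-3.96), Nr4a1 (-3.47), Slc2a3 (-2.91) and Ier3 (-2.11).

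Among leukocyte genes that rose in WT mice, the log2 fold change was lower in ΔNFκB mice for Ngp (-13.26), Mmp8 (-7.77), S100a8 (-6.92), Il5ra (-6.63), Arg1 (-5.65), Chil3 (-5.21), S100a9 (-5.10), Chil1 (-4.12), Lcn2 (-3.34), Clec4d (-3.15), Mmp9 (-2.52), Il1r2 (-2.29) and Fcgr3 (-0.89). It was also lower for the matrix glycoprotein Thbs1 (-3.94), which rose in WT mice. Of the genes that fell in WT mice, Cma1 (4.44) and the epithelial IgA carrier Pigr (0.74) had a higher log2 fold change in ΔNFκB mice. Siglecf (2.72) and Cd177 (2.22), which did not pass in WT mice, had a higher log2 fold change in ΔNFκB mice.

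Of the cytokine and signalling genes that rose, Oas2 (2.34) and Psmb9 (1.27) had a larger rise in ΔNFκB mice. Among cytokine and signalling genes that rose in WT mice, the log2 fold change was lower in ΔNFκB mice for Il11 (-5.04), Ptgs2 (-4.05), Ptges (-2.78), Alox5ap (-2.45), Il18rap (-2.41), Dusp1 (-2.38), Mapk12 (-2.17), C5ar1 (-1.996), Tnfaip2 (-1.96), Il33 (-1.89), Cfp (-1.79) and Il20rb (-1.53). Among cytokine and signalling genes that fell in WT mice, the log2 fold change was higher in ΔNFκB mice for Ccl6 (2.12) and Ccl28 (1.02). Isg15 (3.46), Ifit1 (2.97) and B2m (1.45), which did not pass in WT mice, had a higher log2 fold change in ΔNFκB mice.

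Among stromal and vessel genes that rose in WT mice, the log2 fold change was lower in ΔNFκB mice for Mmp3 (-5.22), Selp (-4.76), Col7a1 (-4.68), Inhbb (-3.93), Lox (-3.88), Adam8 (-3.58), Serpina3n (-3.47), Col5a3 (-3.31), Grem1 (-3.15), Inhba (-3.02), Col18a1 (-2.83), Vwf (-2.77), Timp1 (-2.60) and Plvap (-2.50). Smaller differences of this sign were those of Col4a2 (-2.42), Sfrp1 (-2.26), Ret (-2.02), Col1a1 (-2.01), Egfl7 (-2.01), Flt1 (-1.99) and Fzd1 (-1.17). Among stromal and vessel genes that fell in WT mice, the log2 fold change was higher in ΔNFκB mice for Serpinb5 (1.17) and Id3 (1.09). A larger fall in ΔNFκB mice was found for the stromal and vessel genes Cd34 (-2.20), Tek (-1.996), Tnxb (-1.80), Nefl (-1.78), Wnt2b (-1.78), Lum (-1.49), Col14a1 (-1.47), Adamts15 (-1.21), Thbs2 (-1.12) and Tpm2 (-0.91). Uchl1 (-3.17), which did not pass in WT mice, had a lower log2 fold change in ΔNFκB mice.

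Of the genes of other tissues or outside the lists that rose, Clca4b (3.41) had a larger rise in ΔNFκB mice. Among genes of other tissues or outside the lists that rose in WT mice, the log2 fold change was lower in ΔNFκB mice for Pi15 (-5.42), Cemip (-4.51), Igfbp5 (-3.87) and Fth1 (-1.28). Among genes of other tissues or outside the lists that fell in WT mice, the log2 fold change was higher in ΔNFκB mice for Smpx (3.18), Shisa2 (2.92), Sval1 (2.62), Gal3st2c (2.45), Nxpe4 (2.30), Gstm2 (1.73) and Ckmt1 (1.08).

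For Arg1, Lgr5, Mmp8, Ngp, Otc, S100a8 and Smpx a WT group held 3 counts or fewer, so the fitted difference depends on the count added by the fit and is not a bound.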

How the results depend on the processing

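Against 3022 higher and 3293 lower genes, the counts were 3059 and 3237 with RLE scaling, 3210 and 3074 with upper quartile scaling, 2232 and 2545 by DESeq2, 3117 and 3223 by limma-voom, 3259 and 3217 with no count filter, 3022 and 3270 with a filter of 1 CPM in 2 libraries, 2531 and 2569 with the WT libraries alone, and 3415 and 2926 with antigen receptor, mitochondrial and ribosomal RNA-like genes left out. DESeq2 shared 2131 of the higher and 2479 of the lower calls. Leaving out each library in turn gave 1668 to 3289 higher and 1730 to 2933 lower genes. The 3102 genes whose response differed between genotypes became 512 to 3738 without 1 library and 2631 to 3683 under the alternatives that kept all 8 libraries. The cause was not tested.

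Replicate numbers did not pair the mice: same-numbered deviations correlated at -0.090 between the WT groups and at -0.126 to 0.244 over all pairs of groups. With a replicate block 2978 genes were higher, 3227 lower and 3038 differed in response. Of 338 named genes past the threshold, 258 stayed past it without each WT library and 257 under every alternative run. Over all named genes and alternatives, 5932 values kept their direction and side of the threshold, 307 lost the call, 15 gained one and 0 reversed. Counts of list members stayed within 1.5 times in 1090 of 1170 comparisons under alternatives that kept every library and in 877 of 1040 with 1 library left out. Low counts limit the precision: below a mean of 1 CPM the median SE was 0.62.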
